A study of Homo sapiens with 12 samples.

Results

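The EB-resistant line is a derivative of WM1366, an established NRAS-mutant human melanoma cell line, that was kept in encorafenib, a BRAF inhibitor, together with binimetinib, a MEK inhibitor. It was compared here with the drug-sensitive parent, which received only the solvent DMSO, across every gene of the deposited count table. Of 23497 genes in that table, 17114 had enough counts to be tested, in 3 EB-resistant and 3 sensitive libraries out of the 12 libraries of the series. The other 6 libraries come from a line resistant to vemurafenib plus cobimetinib (VC-resistant) and a line resistant to dabrafenib plus trametinib (DT-resistant), and they are used here only to show where the EB-resistant line differs. All lines descend from WM1366 and its mutant NRAS background; all groups were seeded 72 h before lysis and gave polyadenylated RNA from 500 ng of total RNA. Each drug pair is represented by 1 resistant line, and resistance, drug in the medium and culture history change together, so these cannot be told apart. Libraries of a group carry the numbers 2, 5 and 6, and p values measure the spread between these libraries, not between separately derived lines.

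Mutant NRAS keeps the RAF, MEK and ERK kinases active, and MEK inhibition lowers the transcripts that ERK induces. Melanoma cells can also move along an axis from pigmented, melanocyte-like states driven by the transcription factor MITF to undifferentiated, mesenchymal or neural crest-like states, which differ in receptors, matrix and metabolism. Tumour cells also gain and lose chromosome segments, which shifts the transcripts of many neighbouring genes at once.

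Library totals of the 6 libraries compared ran from 44969991 to 50812813 counts. Levels are CPM, a gene's count relative to the TMM-scaled library size, and in the text 3 values in a row are replicates 2, 5 and 6 of a group. A mean is given ± SD over the 3 libraries of its group. A log2 fold change (log2FC) is EB-resistant over sensitive unless another line is named. Its standard error (SE) is approximate: the size of the log2FC divided by the square root of the F statistic of the test. For genes with few counts in a group this SE can be smaller than the counting error alone. A gene rose or fell when the adjusted p of edgeR's quasi-likelihood test was under 0.05. Of all genes tested, 4869 rose and 4730 fell, so that 56.1% were called (28.5% higher and 27.6% lower), and the median log2FC was -0.005. At 2-fold or more, 12.5% were higher and 8.70% lower. These shares are the background for the counts of each list and family below. Counts near them are not read as a change of the list. The EB-resistant line was also set against the VC-resistant and DT-resistant lines, with 58.4% and 57.2% of genes called, and where 2 adjusted p values are given for a gene they are these tests, in that order. Within each group the libraries correlated with each other more closely across genes than with any library of another group.

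The genes at either end of the comparison included enzymes, cytoskeletal genes and matrix genes. TGM2, which encodes transglutaminase 2, an enzyme that cross-links matrix proteins, stood at 2110.2, 2554 and 2295 CPM in the sensitive libraries and 4.07, 4.5 and 3.24 CPM in the EB-resistant libraries (log2FC -9.2, SE 0.47, adjusted p = 1.74e-07). It was among the most abundant transcripts lost, and no EB-resistant library came near a sensitive one. SERPINB7, a serine protease inhibitor gene, fell from 67.7 ± 8.45 to 0.18 ± 0.106 CPM (log2FC -8.54, SE 0.5, adjusted p = 1.58e-07), and TRHDE, an enzyme that degrades thyrotropin-releasing hormone, fell from 38.2 ± 2.84 to 0.0413 ± 0.02 CPM (log2FC -9.76, SE 0.24, adjusted p = 7.98e-13). MYEOV, a neighbour of CCND1 on chromosome 11, fell as well (log2FC -9.72, SE 0.63, adjusted p = 4.22e-07). DMBT1, a secreted scavenger receptor gene, fell from 53.9 ± 12.7 to 0.191 ± 0.231 CPM (log2FC -8.1, SE 0.94, adjusted p = 6.42e-05), and TMEM163, a zinc transporter gene, fell to 1 count in 3 libraries (ratio 1256 with a counting interval of 225 to 49636). TGM2 was lower in the other resistant lines too (log2FC -5.55 in VC-resistant and -4.81 in DT-resistant cells), though less so than here (adjusted p = 2.96e-05 and 1.04e-05).

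In the other direction, KRT17, a stress-inducible keratin, reached 35.8, 47.4 and 42 CPM from 0.0871, 0.0595 and 0.131 CPM (log2FC 8.79, SE 0.85, adjusted p = 1.83e-05). DAAM2, a formin that acts in WNT signalling, was at 21.8, 28.1 and 24.4 CPM against 0.0435, 0.0397 and 0.087 CPM (log2FC 8.71, SE 0.57, adjusted p = 1.03e-07). It had a log2FC of 1.68 in VC-resistant and 0.51 in DT-resistant cells and differed from both lines (adjusted p = 2.28e-07 and 1.8e-07). ABAT, which breaks down the transmitter GABA, rose from 0.0284 ± 0.0335 to 16.5 ± 1.49 CPM (log2FC 9.06, SE 0.45, adjusted p = 5.06e-10). FOLR1, the folate receptor alpha gene, reached 7.63 ± 1.02 CPM (ratio 544 with a counting interval of 150.2 to 4497), and LINC01615, a long noncoding RNA, 10.2 ± 0.991 CPM (ratio 1449 with a counting interval of 259.6 to 57261). An unnamed gene of chromosome 6, ENSG00000227706, reached 48.6 ± 5.95 CPM (ratio 2306 with a counting interval of 789 to 11185). Such genes were near 0 in every parental library, so their folds are set by a handful of counts, while their levels in the resistant line are well counted.

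Pigment cell genes moved in both directions. In bulk RNA, fewer cells of a type and less RNA per cell cannot be told apart. Of 13 pigment synthesis and melanosome genes tested, 5 rose and 4 fell (median log2FC 0.091, or -0.008 with each chromosome's median subtracted). DCT, an enzyme of melanin synthesis, had 0.076 CPM in EB-resistant cells and was too low to be tested, and PMEL, the fibril protein of melanosomes, stood at 0.755 ± 0.157 and 0.526 ± 0.0602 CPM with no call (adjusted p = 0.251). TYR, the tyrosinase gene, has no entry in the table used. GPNMB, a transmembrane glycoprotein of melanosomes and lysosomes, was the abundant gene of this list with the largest rise, at 23.7, 19.5 and 21.9 CPM in the sensitive libraries and 164, 185 and 199 CPM in the EB-resistant libraries (log2FC 3.07, SE 0.12, adjusted p = 3.83e-11). All EB-resistant libraries lay far above the sensitive ones. LYST, a regulator of lysosome and melanosome size, rose from 15 ± 2.25 to 42.1 ± 2.13 CPM (log2FC 1.49, SE 0.18, adjusted p = 1.28e-05). MLPH and MREG, which link melanosomes to transport along actin and microtubules, fell (log2FC -1.75, SE 0.11, adjusted p = 3.44e-09) and (log2FC -2.05, SE 0.15, adjusted p = 2.91e-08), respectively. TYRP1, an enzyme of melanin synthesis, had a larger fold at a low level, from 0.0284 ± 0.0131 to 0.581 ± 0.136 CPM (log2FC 4.24, SE 0.64, adjusted p = 3.91e-05). For GPNMB the other resistant lines had log2FC of 3.0 in VC-resistant and 2.95 in DT-resistant cells.

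The promoter of GPNMB, printed here for this rise, holds 2 matches to the M-box TCATGTG, the E-box form that MITF binds, and 1 match to the AP-1 site TGANTCA. The 250 bases before the RefSeq start (GRCh38.p14, chr7:23246525-23246774, plus strand) are given from 5′ to 3′ with these matches in capitals, on either strand.

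GPNMB: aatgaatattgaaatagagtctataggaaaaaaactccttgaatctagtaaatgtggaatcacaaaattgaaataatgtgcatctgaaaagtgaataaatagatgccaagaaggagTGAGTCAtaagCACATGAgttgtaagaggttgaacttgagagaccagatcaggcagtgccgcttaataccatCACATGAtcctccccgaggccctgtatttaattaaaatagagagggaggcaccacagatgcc

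The M-box matches begin 123 and 62 bases before the start and the AP-1 match 134 bases before it. MITF itself was at 40.7, 49.1 and 51.7 CPM in the sensitive libraries and 50.3, 53.3 and 56.3 CPM in the EB-resistant libraries, with no call (log2FC 0.18, SE 0.094, adjusted p = 0.121). It was called without sensitive replicate 6 (log2FC 0.26, adjusted p = 0.0435) and with upper quartile scaling (log2FC 0.24, adjusted p = 0.0319).

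Regulators of the neural crest, the embryonic source of melanocytes, changed in both directions. Of 29 tested, 12 rose and 8 fell, 9 and 7 of them by at least 2-fold. TFAP2B, an AP-2 transcription factor of the neural crest, was at 0 counts in every sensitive, VC-resistant and DT-resistant library and at 15.8, 19 and 16.7 CPM in the EB-resistant libraries. It differed from both other resistant lines (adjusted p = 1.36e-08 and 1.49e-08). Its relative TFAP2A, a partner of MITF at melanocyte genes, rose from 40.2 ± 2.43 to 108 ± 13.1 CPM (log2FC 1.43, SE 0.2, adjusted p = 8.82e-05), while TFAP2C did not pass the test (log2FC -0.19, SE 0.11, adjusted p = 0.14). KIT, the receptor for stem cell factor that melanoblasts need, stood at 2.94, 4.51 and 6.2 CPM in the sensitive libraries and 49.9, 59.1 and 64.1 CPM in the EB-resistant libraries (log2FC 3.67, SE 0.21, adjusted p = 8e-09). Its log2FC was 1.28 in VC-resistant and -0.31 in DT-resistant cells (adjusted p = 3.09e-07 and 8.08e-09 for EB-resistant against each). The gene of its ligand, KITLG, rose as well (log2FC 2.0, SE 0.15, adjusted p = 3.43e-08). PAX3, an activator of MITF, rose slightly (log2FC 0.54, SE 0.13, adjusted p = 0.00223), and SOX4 and ID3, a SOX factor and an inhibitor of helix-loop-helix factors, rose (log2FC 3.49, SE 0.27, adjusted p = 2.57e-07) and (log2FC 4.7, SE 0.34, adjusted p = 1.25e-06), respectively.

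Other factors of the same lineage were lower. SOX9, which drives neural crest and cartilage programmes, was at 75.9, 90.2 and 94.5 CPM in the sensitive libraries and 8.05, 7.55 and 7.84 CPM in the EB-resistant libraries (log2FC -3.47, SE 0.19, adjusted p = 7.08e-09). The groups did not overlap. SOX2, a stem cell factor, was at 0 counts in all EB-resistant libraries against 1.09 ± 0.118 CPM, at least 17.6-fold lower. MSX1, a homeobox factor of the neural plate border, fell from 27.9 ± 3.64 to 5.88 ± 0.829 CPM (log2FC -2.25, SE 0.14, adjusted p = 2.76e-09), FOXD3, a factor that holds neural crest cells undifferentiated, fell (log2FC -2.18, SE 0.23, adjusted p = 1.33e-06), and NR2F2, an orphan nuclear receptor, fell from 175 ± 11.8 to 81.4 ± 6.37 CPM (log2FC -1.1, SE 0.11, adjusted p = 4.4e-07). LEF1, the partner of beta-catenin in melanocytes, fell (log2FC -1.72, SE 0.17, adjusted p = 7.45e-07). Both SOX9 and MSX1 were lower than in the other resistant lines (adjusted p = 0.000267 and 0.000311 for SOX9 and 2.69e-06 and 6.99e-05 for MSX1).

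Genes of the dedifferentiated, invasive melanoma state were lower in 15 and higher in 11 of 29 tested (median log2FC -0.47). ITGA2, the collagen-binding integrin alpha 2 chain, stood at 211, 253 and 250.3 CPM in the sensitive libraries and 25.3, 26.5 and 19.7 CPM in the EB-resistant libraries (log2FC -3.32, SE 0.2, adjusted p = 9.73e-08). TGFBI and TNC, secreted matrix proteins, fell from 126 ± 20.7 to 27.9 ± 10.5 CPM (log2FC -2.17, SE 0.26, adjusted p = 5.07e-05) and from 498 ± 28.5 to 149 ± 8.03 CPM (log2FC -1.74, SE 0.17, adjusted p = 3.53e-06), respectively. INHBA, which encodes a subunit of activin, fell from 75.2 ± 6.8 to 27.9 ± 8.5 CPM (log2FC -1.43, SE 0.16, adjusted p = 8.67e-06). In DT-resistant cells INHBA and TGFBI had the opposite sign (log2FC 1.92 and 2.16), and the lines differed (adjusted p = 1.27e-08 and 7.49e-07). FN1, which encodes fibronectin, went against the list, at 67.1, 53.4 and 58 CPM in the sensitive libraries and 565, 482 and 506 CPM in the EB-resistant libraries (log2FC 3.12, SE 0.47, adjusted p = 0.000405). LOX, the lysyl oxidase that cross-links collagen, rose from 4.98 ± 1.62 to 13.2 ± 1.87 CPM (log2FC 1.4, SE 0.34, adjusted p = 0.00327) while its log2FC was -3.91 in VC-resistant and -5.77 in DT-resistant cells (adjusted p = 7.51e-07 and 3.1e-07).

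Transcription factors of the mesenchymal transition moved in different directions. ZEB1 fell from 69.4 ± 3.49 to 27 ± 2.77 CPM (log2FC -1.36, SE 0.11, adjusted p = 7.83e-08), and ZEB2 (log2FC 0.59, SE 0.079, adjusted p = 1.27e-05) and TWIST1 (log2FC 1.03, SE 0.13, adjusted p = 5.73e-06) rose. ZEB1 lies at 30.3 to 36.5 Mb of chromosome 10, where 20 of 25 neighbouring tested genes were lower (median log2FC -1.12). SNAI2 was at 5.42, 5.5 and 9.2 CPM in the sensitive libraries and 16.7, 15.8 and 14.3 CPM in the EB-resistant libraries, with no call (log2FC 1.22, SE 0.56, adjusted p = 0.0941); a fit to these 6 libraries alone called it (adjusted p = 0.000259). The cadherin CDH2, the neural form, did not pass the test (log2FC -0.057, SE 0.071, adjusted p = 0.525), and CDH1, the epithelial form, was too low to be tested. VIM, which encodes the mesenchymal filament vimentin, fell from 6188 ± 348 to 3144 ± 118 CPM (log2FC -0.98, SE 0.073, adjusted p = 2.86e-08).

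Markers of 2 other mesenchymal cell types were partly higher. Of 29 smooth muscle contractile genes tested, 16 rose and 7 fell (median log2FC 0.46), and of 11 fibroblast markers tested, 7 rose and 2 fell (median log2FC 2.13). TAGLN, which binds actin in smooth muscle, stood at 0.435, 0.476 and 0.261 CPM in the sensitive libraries and 6.4, 7.8 and 7.86 CPM in the EB-resistant libraries (log2FC 4.22, SE 0.22, adjusted p = 1.02e-09). MYL9, a myosin light chain, rose from 11.7 ± 1.12 to 28 ± 0.81 CPM (log2FC 1.26, SE 0.14, adjusted p = 1.71e-06), and MRTFA, an actin-sensing coactivator of serum response factor, rose from 16.6 ± 0.702 to 36 ± 1.88 CPM (log2FC 1.12, SE 0.1, adjusted p = 1.27e-07). The defining members differed from each other. ACTA2, smooth muscle actin, fell from 1.13 ± 0.161 to 0.347 ± 0.107 CPM (log2FC -1.7, SE 0.33, adjusted p = 0.000383), MYH11, smooth muscle myosin, was at 0.145 ± 0.0216 CPM and was not tested, and MYOCD, the master regulator, rose to 1.71 ± 0.691 CPM (log2FC 2.59, SE 0.35, adjusted p = 1.57e-05). Among fibroblast markers LUM, a small proteoglycan of collagen fibrils, was at 0.588, 0.834 and 1.33 CPM in the sensitive libraries and 54.2, 50.5 and 44.7 CPM in the EB-resistant libraries (log2FC 5.76, SE 0.59, adjusted p = 2.81e-05), and FBLN1, an elastic fibre protein, rose from 0.145 ± 0.0873 to 8.48 ± 1.78 CPM (log2FC 5.83, SE 0.73, adjusted p = 3.84e-05). PDGFRA, a defining fibroblast receptor, was at 0.096 ± 0.0763 CPM and was not tested. DCN, POSTN, COL6A3 and COL1A2, also on this list, were too low to be tested as well. COL6A2 fell (log2FC -0.9, SE 0.17, adjusted p = 0.000556), as did VIM, given above and a member of the fibroblast list. Summed over the list, fibroblast markers took 6132 to 6816 CPM in sensitive and 3747 to 3949.5 CPM in EB-resistant libraries. VIM made up most of this sum in both groups, so the lower sum follows VIM and not the list as a whole.

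Epithelial, neuronal, endothelial and leukocyte markers gave no common direction. Of 10 epithelial markers tested, 4 rose and 3 fell. OCLN, a tight junction protein gene, and PKP3, a desmosome protein gene, rose (log2FC 1.81, SE 0.15, adjusted p = 1.26e-07) and (log2FC 1.72, SE 0.13, adjusted p = 3.44e-08), respectively, and KRT18, a simple epithelial keratin, fell (log2FC -0.71, SE 0.11, adjusted p = 7.43e-05). Of 19 neuronal genes, 7 rose and 8 fell. L1CAM, a neural adhesion molecule, was at 52.7, 39.9 and 36 CPM in the sensitive libraries and 287, 362 and 331 CPM in the EB-resistant libraries (log2FC 2.93, SE 0.51, adjusted p = 0.001). Its groups were far apart, and its log2FC was 0.046 in VC-resistant and 0.65 in DT-resistant cells (adjusted p = 0.00106 and 0.00379). NRXN3, a synaptic adhesion gene, rose from 0.421 ± 0.033 to 9.7 ± 0.913 CPM (log2FC 4.52, SE 0.33, adjusted p = 3.1e-08), and ENO2, neuronal enolase, fell from 83.7 ± 4.68 to 35.9 ± 3.84 CPM (log2FC -1.22, SE 0.086, adjusted p = 1.51e-08). For endothelial markers the counts were 3 higher and 3 lower of 10, with ROBO4, an endothelial guidance receptor, down (log2FC -1.63, SE 0.11, adjusted p = 1.21e-08), and for leukocyte markers 2 higher and 2 lower of 6, with LAPTM5 down (log2FC -2.7, SE 0.27, adjusted p = 8.05e-07). Summed over the list, leukocyte markers took 13.6 to 16 CPM in sensitive and 4.12 to 5.48 CPM in EB-resistant libraries.

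**Figure D1:**
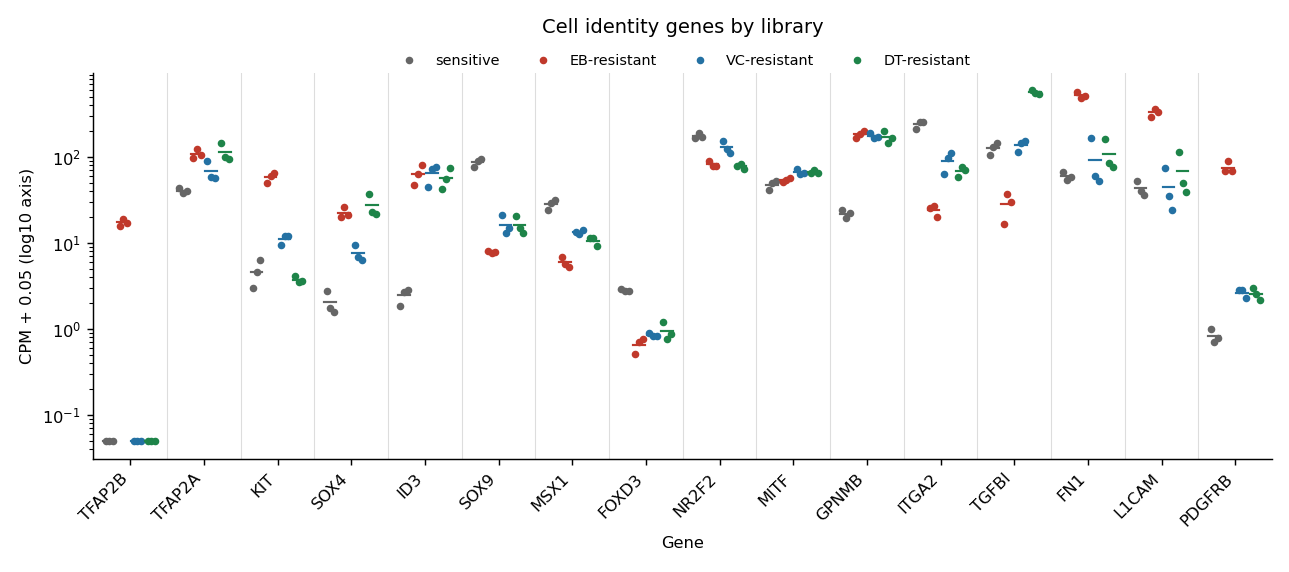
CPM of 16 cell identity genes on a log10 axis after adding 0.05 CPM, 1 point per library, coloured by group, 3 libraries a group, with a short line at the group mean. TFAP2B is at 0 counts in the 9 libraries outside the EB-resistant group, KIT, L1CAM and PDGFRB are highest in the EB-resistant libraries, and SOX9, MSX1 and ITGA2 are lowest there.

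Most collagen chain genes rose and most laminin chain genes fell. Of 26 collagen chain genes tested, 16 rose, 15 of them by at least 2-fold, and 5 fell (median log2FC 1.6). COL8A1, a network-forming chain of vessel walls, was at 92.3, 108 and 108 CPM in the sensitive libraries and 976, 839 and 656 CPM in the EB-resistant libraries (log2FC 3.0, SE 0.28, adjusted p = 7.69e-06), and COL5A1, which starts fibrils of type I collagen, at 50.3, 60.9 and 68.2 CPM in the sensitive libraries and 389.6, 505 and 341 CPM in the EB-resistant libraries (log2FC 2.78, SE 0.3, adjusted p = 3.26e-05). Each EB-resistant library exceeded each sensitive library several times over. COL4A5 and COL4A6, paired chains of basement membrane, rose from 6.35 ± 0.491 to 77 ± 6.42 CPM (log2FC 3.6, SE 0.16, adjusted p = 1.69e-10) and from 1.73 ± 0.122 to 10.9 ± 1.2 CPM (log2FC 2.66, SE 0.35, adjusted p = 2.13e-05), respectively. COL18A1, the source of endostatin, rose from 4.25 ± 0.94 to 33.8 ± 5.62 CPM (log2FC 2.99, SE 0.37, adjusted p = 4.39e-05) but had log2FC of -1.53 in VC-resistant and -0.98 in DT-resistant cells (adjusted p = 4.49e-06 and 9.51e-06). SERPINH1, the chaperone that folds collagen, rose from 188 ± 14 to 794 ± 34.7 CPM (log2FC 2.08, SE 0.1, adjusted p = 3.86e-10). The transmembrane collagens COL13A1 (log2FC -2.69, SE 0.1, adjusted p = 1.83e-11) and COL17A1 (log2FC -3.89, SE 0.28, adjusted p = 1.7e-08) fell.

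For laminins, the heterotrimers to which integrins bind in basement membranes, 1 of 10 chains rose and 6 fell (median log2FC -0.95). LAMA5 was at 109, 71.6 and 52 CPM in the sensitive libraries and 5.36, 4.25 and 2.29 CPM in the EB-resistant libraries (log2FC -4.29, SE 0.48, adjusted p = 4.33e-05). LAMB3, a chain of laminin 332, fell from 132 ± 24.8 to 11.9 ± 1.51 CPM (log2FC -3.48, SE 0.22, adjusted p = 7.83e-08), and LAMB1 fell from 247 ± 14.6 to 128 ± 10.5 CPM (log2FC -0.95, SE 0.081, adjusted p = 1.2e-07). Among 20 integrin subunits, 4 rose and 8 fell. ITGA6, a laminin receptor chain, fell from 408 ± 53.5 to 172 ± 6.94 CPM (log2FC -1.25, SE 0.1, adjusted p = 5.53e-08), as ITGA2 did above, and ITGB8, which binds latent TGF-beta, rose from 19.97 ± 8.01 to 66.9 ± 6.21 CPM (log2FC 1.74, SE 0.24, adjusted p = 7.19e-05). ITGB8 had log2FC of -1.21 in VC-resistant and -1.12 in DT-resistant cells and differed from both lines (adjusted p = 1.73e-06 and 2.36e-06).

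**Figure D2:**
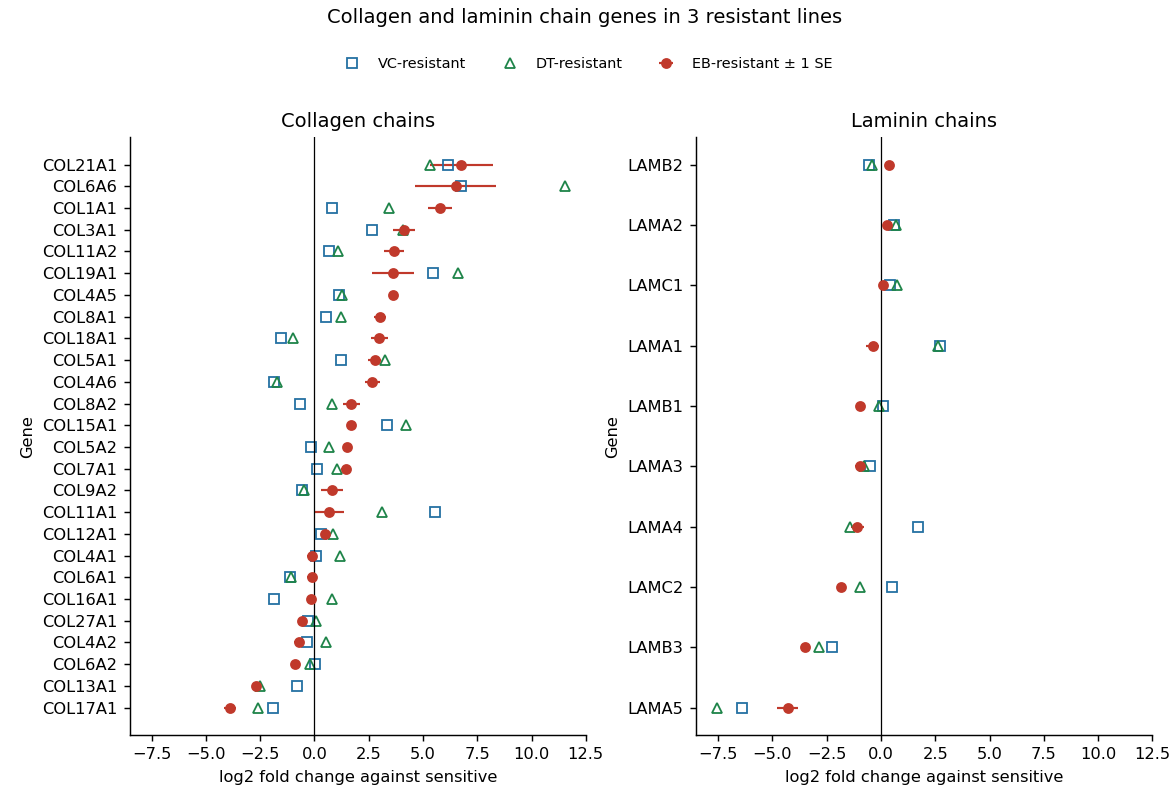
Log2FC against sensitive of each collagen and laminin chain gene tested, 1 row per gene ordered by the EB-resistant value. EB-resistant values are filled points with bars of 1 SE, approximated as the log2FC divided by the square root of the F statistic. VC-resistant and DT-resistant values are open symbols. The EB-resistant points lie right of 0 for most collagen chains and left of 0 for most laminin chains. The resistant lines share the sensitive libraries.

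Proteases that cut matrix changed in both directions. Of 43 matrix proteases and inhibitors tested, 15 rose and 16 fell. ADAMTS5, an aggrecanase, stood at 8.2, 9.29 and 10.4 CPM in the sensitive libraries and 372, 299 and 259 CPM in the EB-resistant libraries (log2FC 5.06, SE 0.15, adjusted p = 4.58e-12), and its relative ADAMTS15 rose from 1.69 ± 0.571 to 21.3 ± 1.49 CPM (log2FC 3.66, SE 0.23, adjusted p = 4.83e-09). Both were higher here than in the other lines: log2FC were 0.83 in VC-resistant and 0.92 in DT-resistant cells for ADAMTS5 (adjusted p = 3.45e-11 and 3.77e-11) and -0.8 in VC-resistant and -0.044 in DT-resistant cells for ADAMTS15 (adjusted p = 2.29e-09 and 8.11e-09). MMP2, a gelatinase, rose from 45.2 ± 3.6 to 163 ± 27 CPM (log2FC 1.85, SE 0.35, adjusted p = 0.00135). MMP14, the membrane protease that activates MMP2, fell from 825 ± 114 to 309 ± 41 CPM (log2FC -1.42, SE 0.18, adjusted p = 4.14e-05). PLAU, a plasminogen activator, stood at 1113, 1039.8 and 1115 CPM in the sensitive libraries and 174, 206 and 198 CPM in the EB-resistant libraries (log2FC -2.5, SE 0.12, adjusted p = 4.04e-10). PLAT, the other activator, fell from 239.9 ± 27.3 to 31.6 ± 3.21 CPM (log2FC -2.93, SE 0.34, adjusted p = 5.66e-05). SERPINB2, an inhibitor of these activators, rose from 1.64 ± 0.258 to 34.1 ± 7.11 CPM (log2FC 4.37, SE 0.27, adjusted p = 1.16e-08) with a log2FC of -2.81 in VC-resistant and 1.15 in DT-resistant cells (adjusted p = 1.94e-09 and 1.58e-07).

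Among 40 proteoglycan and heparan sulfate genes, 21 rose and 11 fell (median log2FC 0.3). GPC1, a lipid-anchored heparan sulfate proteoglycan, was at 12.9, 10.9 and 11.5 CPM in the sensitive libraries and 74.6, 73.2 and 70.3 CPM in the EB-resistant libraries (log2FC 2.63, SE 0.19, adjusted p = 7.46e-08), with log2FC of 0.2 in VC-resistant and -0.027 in DT-resistant cells (adjusted p = 1.87e-07 and 1.02e-07). HAS2, a hyaluronan synthase, fell from 16.6 ± 1.69 to 0.173 ± 0.115 CPM (log2FC -6.56, SE 0.46, adjusted p = 7.56e-08), and CHST11, a chondroitin sulfotransferase, fell from 77.3 ± 2.93 to 14.4 ± 1.09 CPM (log2FC -2.42, SE 0.088, adjusted p = 1.87e-11). Of 23 elastic fibre and matricellular genes 10 rose and 10 fell. MATN2, a filament-forming matrix protein, was at 10.7, 11 and 11.7 CPM in the sensitive libraries and 186, 249 and 264 CPM in the EB-resistant libraries (log2FC 4.39, SE 0.17, adjusted p = 1.99e-10), SPARC, a collagen-binding glycoprotein, rose from 352 ± 36.3 to 1188 ± 114 CPM (log2FC 1.76, SE 0.16, adjusted p = 1.33e-06), and ECM1 fell from 73.8 ± 10.3 to 17.4 ± 1.87 CPM (log2FC -2.09, SE 0.15, adjusted p = 3.98e-08).

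Caveolae, the flask-shaped pits of the plasma membrane, had 7 of 11 coat genes higher and 2 lower (median log2FC 0.56, or 0.21 after the median of each gene's chromosome was subtracted). CAV1, the main coat protein, stood at 79.95, 106 and 120.2 CPM in the sensitive libraries and 345, 366 and 405 CPM in the EB-resistant libraries (log2FC 1.86, SE 0.13, adjusted p = 3.3e-08), and CAV2 rose from 28.3 ± 1.98 to 68.7 ± 1.61 CPM (log2FC 1.28, SE 0.1, adjusted p = 4.12e-08). CAVIN2 and EHD2, which shape and hold the pits, rose from 3.33 ± 1.59 to 74.5 ± 12.1 CPM (log2FC 4.48, SE 0.51, adjusted p = 5.23e-05) and from 56.3 ± 3.95 to 256 ± 26.7 CPM (log2FC 2.19, SE 0.1, adjusted p = 1.35e-10), respectively. CAV1 and EHD2 differed from both other lines (adjusted p = 3.05e-07 and 3.3e-08 for CAV1, and 7.93e-10 and 1.67e-09 for EHD2), in which CAV1 had log2FC of 0.36 in VC-resistant and -0.1 in DT-resistant cells. EHD4 fell (log2FC -1.4, SE 0.14, adjusted p = 1.28e-06).

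Receptor tyrosine kinases changed in both directions, with 88.9% called against 56.1% of all genes. Of 36 tested, 19 rose and 13 fell, 14 and 9 of them by at least 2-fold. A high called share was not particular to these kinases. It was 89.7% for the dedifferentiated melanoma genes, 83.3% for ligands of receptor tyrosine kinases and 82.4% for TGF-beta and BMP pathway genes. PDGFRB, which binds platelet-derived growth factors, stood at 0.958, 0.655 and 0.74 CPM in the sensitive libraries and 67.7, 88.3 and 67.4 CPM in the EB-resistant libraries (log2FC 6.57, SE 0.18, adjusted p = 1.42e-12). Every EB-resistant library was far above every sensitive library, as for KIT above. MUSK, known from the neuromuscular synapse, rose from 3.44 ± 0.306 to 22.3 ± 1.23 CPM (log2FC 2.7, SE 0.18, adjusted p = 1.11e-08), with log2FC of -1.07 in VC-resistant and -1.26 in DT-resistant cells (adjusted p = 1.41e-09 and 1.01e-09). DDR1, a collagen receptor, rose from 13.8 ± 1.29 to 43.1 ± 5.21 CPM (log2FC 1.65, SE 0.13, adjusted p = 4.07e-08), and ERBB2 and ERBB3, of the EGF receptor family, rose from 18.3 ± 2.02 to 37 ± 4.6 CPM (log2FC 1.01, SE 0.13, adjusted p = 9.12e-06) and from 0.722 ± 0.0498 to 3.53 ± 0.433 CPM (log2FC 2.28, SE 0.27, adjusted p = 3.25e-06), respectively. ERBB3 had log2FC of 0.29 in VC-resistant and -0.36 in DT-resistant cells (adjusted p = 1.13e-05 and 1.26e-06). EGFR itself fell from 268 ± 41.6 to 151 ± 9.24 CPM (log2FC -0.83, SE 0.11, adjusted p = 1.06e-05), while FGFR1, a fibroblast growth factor receptor, did not pass the test (adjusted p = 0.0903). Among Eph receptors EPHB2 and EPHA2 fell from 76 ± 10.6 to 13.7 ± 2.11 CPM (log2FC -2.48, SE 0.15, adjusted p = 8.78e-09) and from 419.6 ± 31.3 to 197 ± 14.6 CPM (log2FC -1.09, SE 0.084, adjusted p = 3.98e-08), respectively, and EPHA5 rose (log2FC 2.3, SE 0.26, adjusted p = 8.41e-06).

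The promoter of PDGFRB is shown because this receptor had the highest log2FC among the kinases tested and holds 1 match to the core of the interferon-stimulated response element, GAAA followed by any 2 bases and GAAA, the motif searched whose holders had the largest share of risen genes. The 250 bases before the start lie at chr5:150155846-150156095 (GRCh38.p14, minus strand), with the match in capitals, 159 bases before the start.

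PDGFRB: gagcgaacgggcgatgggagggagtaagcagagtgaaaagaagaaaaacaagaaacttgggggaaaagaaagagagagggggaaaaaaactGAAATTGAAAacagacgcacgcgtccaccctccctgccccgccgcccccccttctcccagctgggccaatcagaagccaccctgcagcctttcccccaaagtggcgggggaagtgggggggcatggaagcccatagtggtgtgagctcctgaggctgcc

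A match is a description of the letters and was not tested as a binding site.

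Ligands of these receptors shifted as well, with 16 of 36 higher and 14 lower, 7 and 12 by at least 2-fold. FGF5, a fibroblast growth factor, was at 88.6, 88.4 and 88.2 CPM in the sensitive libraries and 4.4, 2.85 and 3.3 CPM in the EB-resistant libraries (log2FC -4.65, SE 0.18, adjusted p = 6.84e-11), and TGFA, an EGF receptor ligand, fell from 18.2 ± 1.65 to 1.91 ± 0.218 CPM (log2FC -3.25, SE 0.34, adjusted p = 3.88e-06). HBEGF, another EGF receptor ligand, fell from 275 ± 40.5 to 92.8 ± 14.8 CPM (log2FC -1.57, SE 0.13, adjusted p = 2.64e-07), and VEGFA, the vascular growth factor, fell from 199.8 ± 23.4 to 96.1 ± 21 CPM (log2FC -1.06, SE 0.13, adjusted p = 6.41e-06). CSF1, the macrophage growth factor, rose from 17.1 ± 1.71 to 89.4 ± 9.52 CPM (log2FC 2.38, SE 0.13, adjusted p = 1.72e-09). NRG1, the ligand of ERBB3, rose from 28.9 ± 5.9 to 102 ± 14.8 CPM (log2FC 1.82, SE 0.17, adjusted p = 1.74e-06), and FGF13, an intracellular member of the fibroblast growth factor family, rose from 0.773 ± 0.228 to 39.4 ± 3.28 CPM (log2FC 5.67, SE 0.16, adjusted p = 1.42e-12). CSF1 and NRG1 were higher than in either other line (adjusted p = 1.77e-07 and 5.52e-05 for CSF1, and 8.51e-05 and 0.000102 for NRG1).

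In the TGF-beta and BMP pathway 20 of 51 genes rose and 22 fell. BMP4, a BMP ligand, stood at 1.33, 1.49 and 1.37 CPM in the sensitive libraries and 32.2, 46.3 and 46.2 CPM in the EB-resistant libraries (log2FC 4.89, SE 0.19, adjusted p = 3.08e-11), and GDF6, a BMP of the neural crest, rose from 0.127 ± 0.00662 to 14.5 ± 2.62 CPM (log2FC 6.81, SE 0.27, adjusted p = 3.91e-11). INHBE, an activin subunit, rose from 3.52 ± 1.7 to 108 ± 17.6 CPM (log2FC 4.94, SE 0.34, adjusted p = 5.75e-07), and TGFB2 rose from 59.2 ± 4.2 to 334 ± 22.6 CPM (log2FC 2.49, SE 0.22, adjusted p = 2.67e-06). In the other lines log2FC were 2.63 in VC-resistant and 1.67 in DT-resistant cells for BMP4 (adjusted p = 2.55e-08 and 1.46e-09) and 0.37 in VC-resistant and 1.85 in DT-resistant cells for INHBE (adjusted p = 1.01e-06 and 1.03e-05). On the falling side, LTBP1, which stores latent TGF-beta in the matrix, was at 102, 93.7 and 90.1 CPM in the sensitive libraries and 4.04, 5.15 and 4.35 CPM in the EB-resistant libraries (log2FC -4.4, SE 0.22, adjusted p = 1.06e-08). TGFBR2, the type II receptor, fell from 180.1 ± 15.1 to 69.1 ± 3.02 CPM (log2FC -1.38, SE 0.084, adjusted p = 3.22e-09). NOG, an antagonist of BMPs, fell from 21.9 ± 2.48 to 8 ± 0.918 CPM (log2FC -1.45, SE 0.14, adjusted p = 4.49e-07), and ID3, a target of BMP signalling, rose as given above. The median log2FC of the list was -0.14, and it was 0.20 after the median of each gene's chromosome was subtracted.

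WNT pathway genes were higher in 18 and lower in 11 of 41. Frizzled receptors FZD7 and FZD2 rose from 36.6 ± 2.14 to 129 ± 10.7 CPM (log2FC 1.81, SE 0.17, adjusted p = 1.47e-06) and from 45.8 ± 1.48 to 136 ± 11.5 CPM (log2FC 1.57, SE 0.1, adjusted p = 8.78e-09), respectively, and ROR1, a receptor for WNT5A, rose from 4.51 ± 1.85 to 17.7 ± 2.81 CPM (log2FC 1.97, SE 0.34, adjusted p = 0.000431). LRP5, a coreceptor, rose from 1.76 ± 0.666 to 15.4 ± 2.4 CPM (log2FC 3.13, SE 0.25, adjusted p = 1.58e-07). SFRP1 and DKK2, secreted antagonists, fell from 374 ± 36.9 to 14 ± 0.927 CPM (log2FC -4.74, SE 0.36, adjusted p = 2.87e-06) and from 6.63 ± 1.48 to 0.571 ± 0.256 CPM (log2FC -3.53, SE 0.32, adjusted p = 2.58e-07), respectively, while DKK1, another antagonist, rose from 242 ± 65.6 to 409.6 ± 65.9 CPM (log2FC 0.76, SE 0.21, adjusted p = 0.00956). WNT5A fell (log2FC -0.49, SE 0.15, adjusted p = 0.0133) and WNT5B rose (log2FC 0.74, SE 0.15, adjusted p = 0.000885). Notch pathway genes had 11 of 25 higher and 6 lower. NOTCH1 fell from 29.96 ± 4.52 to 17.5 ± 1.21 CPM (log2FC -0.78, SE 0.13, adjusted p = 8.26e-05), LFNG, a glycosyltransferase that tunes Notch receptors, rose from 2.14 ± 1.15 to 9.11 ± 0.594 CPM (log2FC 2.09, SE 0.33, adjusted p = 0.000121).

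Axon guidance cues and their receptors, which many tumour cells reuse for migration, were higher in 14 and lower in 16 of 38. PLXND1, a receptor of class 3 semaphorins, was at 4.74, 4.33 and 4.92 CPM in the sensitive libraries and 124, 162 and 132 CPM in the EB-resistant libraries (log2FC 4.9, SE 0.14, adjusted p = 1.55e-12), and the log2FC was 2.16 in VC-resistant and 1.45 in DT-resistant cells. The EB-resistant value was higher than in both (adjusted p = 3.73e-10 and 5.02e-11). The semaphorin genes SEMA3B and SEMA3D rose (log2FC 2.04, SE 0.21, adjusted p = 1.58e-06) and (log2FC 1.56, SE 0.16, adjusted p = 7.22e-07), respectively. SEMA7A and SEMA6B fell from 156 ± 24.1 to 10.7 ± 2.17 CPM (log2FC -3.87, SE 0.15, adjusted p = 1.39e-10) and from 30.8 ± 3.83 to 2.64 ± 0.395 CPM (log2FC -3.54, SE 0.25, adjusted p = 3.51e-08), respectively. NTNG1, a netrin relative, fell from 17.5 ± 0.153 to 0.104 ± 0.0223 CPM (log2FC -7.36, SE 0.31, adjusted p = 5.66e-11). Of 17 genes around the insulin-like growth factors, 6 rose and 5 fell. IGFBP2, a binding protein, stood at 5.61, 4.45 and 4.09 CPM in the sensitive libraries and 20.7, 31.1 and 24 CPM in the EB-resistant libraries (log2FC 2.42, SE 0.36, adjusted p = 0.000132) and went the other way in the other lines (log2FC -2.16 in VC-resistant and -4.45 in DT-resistant cells, adjusted p = 2.92e-06 and 6.38e-07). STC1, a glycoprotein hormone, fell from 209 ± 39.8 to 3.85 ± 1.02 CPM (log2FC -5.76, SE 0.51, adjusted p = 9.93e-06).

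Upstream of ERK, 15 of 48 RAS regulators and RAF, MEK and ERK kinases rose and 21 fell, few by 2-fold or more (4 higher and 7 lower). MRAS, a RAS relative that activates RAF through the SHOC2 complex, was at 7.68, 5.3 and 5.59 CPM in the sensitive libraries and 32.6, 39 and 39.5 CPM in the EB-resistant libraries (log2FC 2.58, SE 0.21, adjusted p = 1.73e-07). MAP2K1, which encodes MEK1, a target of binimetinib, fell from 83.7 ± 4.27 to 38.1 ± 1.79 CPM (log2FC -1.14, SE 0.066, adjusted p = 1.92e-09) with log2FC of 0.044 in VC-resistant and -0.010 in DT-resistant cells (adjusted p = 2.52e-09 and 4.02e-09). RASSF8, a RAS-association protein gene, fell from 254 ± 37.4 to 52.4 ± 1.24 CPM (log2FC -2.28, SE 0.093, adjusted p = 4.81e-11). RASA1, which switches RAS off, fell (log2FC -0.69, SE 0.11, adjusted p = 8.07e-05). In the PI3K pathway 13 of 40 rose and 14 fell. PIK3CA was not called (adjusted p = 0.287), and PHLPP1, a phosphatase of AKT, fell from 27.3 ± 2.34 to 9.12 ± 0.0725 CPM (log2FC -1.58, SE 0.12, adjusted p = 4.41e-08). SGK1, a kinase related to AKT, fell from 149 ± 20.9 to 39.1 ± 8.39 CPM (log2FC -1.93, SE 0.33, adjusted p = 0.000773) but had log2FC of 0.88 in VC-resistant and 0.88 in DT-resistant cells (adjusted p = 7.76e-05 and 8.27e-05).

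YAP and TEAD target genes did not move as a group, with 13 of 34 higher and 14 lower (median log2FC -0.059). CCN2, a matricellular protein, was at 1066, 1118 and 853 CPM in the sensitive libraries and 541, 444 and 430.3 CPM in the EB-resistant libraries (log2FC -1.1, SE 0.19, adjusted p = 0.000475), and ANKRD1, a nuclear ankyrin protein gene, fell from 640.3 ± 45.8 to 213 ± 43.7 CPM (log2FC -1.58, SE 0.14, adjusted p = 7.85e-07). CCN1 was not called (log2FC -0.14, SE 0.22, adjusted p = 0.623). IGFBP3 rose from 13.2 ± 4.63 to 60.7 ± 6.44 CPM (log2FC 2.2, SE 0.21, adjusted p = 1.55e-06), and YAP1 was not called (adjusted p = 0.145). The promoter of CCN2 is shown because it carries 3 matches to the TEAD site GGAATG in 250 bases, at 169, 104 and 95 bases before the start (chr6:131951373-131951622, GRCh38.p14, minus strand, matches in capitals).

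CCN2: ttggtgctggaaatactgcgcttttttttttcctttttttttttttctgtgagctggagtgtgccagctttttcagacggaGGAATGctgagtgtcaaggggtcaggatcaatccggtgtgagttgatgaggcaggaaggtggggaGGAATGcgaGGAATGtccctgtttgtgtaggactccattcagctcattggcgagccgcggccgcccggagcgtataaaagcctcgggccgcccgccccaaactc

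Genes that hold this site are counted with the other motifs.

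Of 38 NF-kappaB targets and regulators, 7 rose and 12 fell, with 50% called against 56.1% of all genes. IL1A and IL11, inflammatory cytokines, fell from 100.4 ± 17.5 to 1.95 ± 0.845 CPM (log2FC -5.68, SE 0.38, adjusted p = 8.12e-07) and from 238 ± 50.7 to 8.38 ± 4.41 CPM (log2FC -4.83, SE 0.47, adjusted p = 1.92e-05), respectively. IL24 fell from 213 ± 66.6 to 36 ± 13.4 CPM (log2FC -2.56, SE 0.35, adjusted p = 0.000162). IL1B stood at 829, 812 and 595 CPM in the sensitive libraries and 5.25, 1.77 and 2.33 CPM in the EB-resistant libraries (log2FC -7.9, SE 0.7, adjusted p = 1.23e-05). CXCL8, a neutrophil chemokine, was at 735, 808 and 515 CPM in the sensitive libraries and 285, 46.9 and 65.8 CPM in the EB-resistant libraries, a spread with which it was not called (log2FC -2.37, SE 1.01, adjusted p = 0.0768). It was called without EB-resistant replicate 2 (log2FC -3.59, adjusted p = 0.0251), the library at 285 CPM, by DESeq2 (log2FC -2.36, adjusted p = 0.016) and by limma (log2FC -2.82, adjusted p = 0.0452). IL6 was not called (adjusted p = 0.748). ICAM1, a leukocyte adhesion molecule, NFKBIA, the inhibitor of NF-kappaB, and IL32 rose (log2FC 1.81, SE 0.2, adjusted p = 1.41e-05), (log2FC 2.28, SE 0.45, adjusted p = 0.00189) and (log2FC 4.52, SE 0.2, adjusted p = 1.69e-09). JAK-STAT genes were higher in 16 and lower in 14 of 40. IFNGR1, an interferon gamma receptor chain, rose (log2FC 1.31, SE 0.092, adjusted p = 1.5e-08), and SOCS2, a feedback inhibitor, fell from 47.7 ± 4.61 to 5.18 ± 0.539 CPM (log2FC -3.2, SE 0.13, adjusted p = 3.71e-11).

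Enzymes of cyclic nucleotides changed in both directions. Of 38 genes 14 rose and 15 fell, and among 17 phosphodiesterases 8 rose and 6 fell. PDE1A, a calcium-activated phosphodiesterase, was at 0.174, 0.0198 and 0.174 CPM in the sensitive libraries and 13, 16.5 and 12 CPM in the EB-resistant libraries (log2FC 6.82, SE 0.35, adjusted p = 6.23e-10). PDE4D, a cyclic AMP phosphodiesterase, fell from 141 ± 23.4 to 31.4 ± 9.75 CPM (log2FC -2.16, SE 0.29, adjusted p = 0.000132), and its log2FC was -0.51 in VC-resistant and -0.34 in DT-resistant cells (adjusted p = 0.000726 and 0.00042). GUCY1A2, a subunit of the nitric oxide receptor, rose from 0.805 ± 0.348 to 52.4 ± 11.3 CPM (log2FC 6.03, SE 0.29, adjusted p = 1.1e-08), and ADCY3, an adenylyl cyclase, fell from 102 ± 5.64 to 22.2 ± 2.61 CPM (log2FC -2.2, SE 0.12, adjusted p = 1.72e-09). Of 30 p53 target genes tested, 8 rose and 13 fell. BTG2, an antiproliferative gene, rose from 2.95 ± 1.21 to 17 ± 8.91 CPM (log2FC 2.53, SE 0.41, adjusted p = 0.000255), and PMAIP1, which encodes the death activator NOXA, fell from 166 ± 2.39 to 53.8 ± 4.41 CPM (log2FC -1.62, SE 0.071, adjusted p = 1.04e-10).

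Antioxidant genes that the transcription factor NRF2 controls rose together. Of 36 tested, 26 rose, 14 of them by at least 2-fold, and 3 fell (median log2FC 0.57). The count of fallen genes was 1 without EB-resistant replicate 5 or 6 or without sensitive replicate 5 or 6. Summed over the list they took 4786 to 4988 CPM in the sensitive and 11449 to 11993 CPM in the EB-resistant libraries, and the groups did not overlap. FTL, the ferritin light chain that stores iron, stood at 911, 885 and 839 CPM in the sensitive libraries and 4363, 4717 and 4865 CPM in the EB-resistant libraries (log2FC 2.4, SE 0.1, adjusted p = 7.51e-11). FTH1, the heavy chain, was at 543, 509 and 468 CPM in the sensitive libraries and 1902, 1934 and 1878 CPM in the EB-resistant libraries (log2FC 1.91, SE 0.092, adjusted p = 2.69e-10). The ferritin genes made up most of the summed rise. NQO1, a quinone reductase, was at 76.4, 84.6 and 86.3 CPM in the sensitive and 367, 312 and 332 CPM in the EB-resistant libraries (log2FC 2.03, SE 0.1, adjusted p = 3.14e-10). ABCC2, a pump for glutathione conjugates, rose from 3.72 ± 0.479 to 38.6 ± 2.12 CPM (log2FC 3.37, SE 0.16, adjusted p = 1.99e-10), PIR rose from 3.56 ± 0.715 to 19.5 ± 0.555 CPM (log2FC 2.46, SE 0.17, adjusted p = 1.76e-08), and SLC7A11, the cystine importer, rose from 98.1 ± 16.7 to 282 ± 34.6 CPM (log2FC 1.52, SE 0.26, adjusted p = 0.000686).

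Several of these rises were larger here than in the other lines. Log2FC were 0.66 in VC-resistant and 0.7 in DT-resistant cells for FTL (adjusted p = 3.04e-09 and 4e-09 for the differences), -0.18 in VC-resistant and 0.14 in DT-resistant cells for NQO1 (adjusted p = 3.28e-10 and 1.35e-09), -2.13 in VC-resistant and -2.6 in DT-resistant cells for ABCC2 (adjusted p = 1.42e-11 and 7.71e-12) and -0.39 in VC-resistant and 0.14 in DT-resistant cells for SLC7A11 (adjusted p = 0.000158 and 0.00128). For FTH1 they were 1.44 in VC-resistant and 1.89 in DT-resistant cells, and EB-resistant differed from VC-resistant (adjusted p = 0.000316) but the difference from DT-resistant was not called (adjusted p = 0.831). HMOX1, the heme oxygenase that NRF2 also induces, was at 6.83, 5.97 and 5.05 CPM in the sensitive libraries and 6.67, 7.74 and 7.96 CPM in the EB-resistant libraries, with no call (log2FC 0.33, SE 0.16, adjusted p = 0.0947), though it was called without sensitive replicate 2 (log2FC 0.43, adjusted p = 0.0484). The genes of this list that fell were SLC48A1, CBR3 and GCLM, named for their count after their values were seen, each by less than 2-fold.

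**Figure D3:**
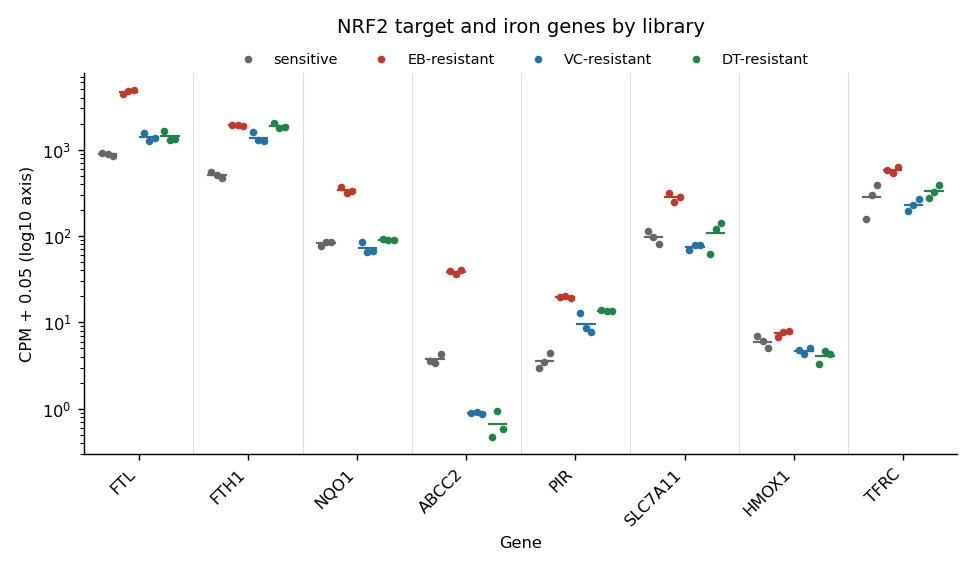
CPM of 8 NRF2 target and iron genes on a log10 axis after adding 0.05 CPM, 1 point per library in 4 groups of 3, with a short line at each group mean. FTL, NQO1, ABCC2 and SLC7A11 are highest in the EB-resistant libraries, while those of HMOX1 overlap the sensitive libraries.

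TFRC, the transferrin receptor that takes up iron, rose from 280.2 ± 115 to 582 ± 49.1 CPM (log2FC 1.05, SE 0.29, adjusted p = 0.0105), a call lost in a fit to these 6 libraries alone (adjusted p = 0.0529). In the wider list of metal genes 10 of 23 rose and 6 fell, with MT1F, a metallothionein, higher (log2FC 2.38, SE 0.19, adjusted p = 7.83e-08) and SLC39A6, a zinc importer, lower (log2FC -1.72, SE 0.086, adjusted p = 4.15e-10). Of 14 glutathione transferases 9 rose and 2 fell. GSTM3 rose from 25.3 ± 2.2 to 49.6 ± 5.7 CPM (log2FC 0.97, SE 0.1, adjusted p = 8.55e-07) and GSTO1 fell from 177 ± 17.6 to 82.2 ± 3.94 CPM (log2FC -1.1, SE 0.080, adjusted p = 1.99e-08). Among 35 aldehyde, retinoid and steroid genes 16 rose and 11 fell. ALDH1A3, which makes retinoic acid, fell from 53.5 ± 12.9 to 7.14 ± 1.69 CPM (log2FC -2.91, SE 0.24, adjusted p = 8.12e-07), and the retinoid receptor genes RXRA and RARG rose from 7.4 ± 0.829 to 40.8 ± 3.39 CPM (log2FC 2.46, SE 0.11, adjusted p = 1.72e-10) and from 16.4 ± 0.76 to 45.3 ± 3.82 CPM (log2FC 1.46, SE 0.15, adjusted p = 1.21e-06), respectively. RXRA had log2FC of -0.45 in VC-resistant and -0.47 in DT-resistant cells (adjusted p = 9.12e-11 and 8.07e-11).

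Of 35 hypoxia-induced genes 9 rose and 14 fell (median log2FC -0.14), against 28.5% higher and 27.6% lower over all genes tested. SLC2A1 and SLC2A3, glucose transporters, fell from 565 ± 12.3 to 285 ± 20.6 CPM (log2FC -0.99, SE 0.088, adjusted p = 1.97e-07) and from 44.3 ± 9.9 to 11 ± 2.29 CPM (log2FC -2.01, SE 0.3, adjusted p = 0.000229), respectively, while ADM, a vasodilator peptide, and NDRG1 rose (log2FC 2.41, SE 0.47, adjusted p = 0.00191) and (log2FC 1.68, SE 0.17, adjusted p = 1.08e-06), respectively. HIF1A was at 360.03 ± 6.85 and 359.8 ± 6.26 CPM, with no call. ATF4 targets had 10 of 35 higher and 12 lower, with 62.9% called against 56.1% of all genes. NUPR1, a stress-induced chromatin protein, stood at 1.18, 0.357 and 0.413 CPM in the sensitive libraries and 69.5, 68 and 61.7 CPM in the EB-resistant libraries (log2FC 6.69, SE 0.3, adjusted p = 1.88e-09), above both other lines (adjusted p = 1.14e-07 and 1.63e-07). In fatty acid synthesis and storage 13 of 32 rose and 11 fell. The desaturase gene FADS2 was at 30.1, 35.6 and 32.7 CPM in the sensitive libraries and 179, 142 and 109 CPM in the EB-resistant libraries (log2FC 2.13, SE 0.41, adjusted p = 0.00158), with log2FC of -1.75 in VC-resistant and -2.03 in DT-resistant cells (adjusted p = 5.61e-05 and 4.15e-05). MGLL, a lipase, fell from 243 ± 38.8 to 86.1 ± 6.75 CPM (log2FC -1.5, SE 0.1, adjusted p = 1.14e-08).

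In fatty acid uptake and oxidation 11 of 34 rose and 11 fell. CD36, a fatty acid importer, stood at 0.109, 0.0794 and 0.174 CPM in the sensitive libraries and 11.4, 14.5 and 12.9 CPM in the EB-resistant libraries (log2FC 6.73, SE 0.24, adjusted p = 1.53e-11), and rose in the other lines too (log2FC 6.99 in VC-resistant and 5.79 in DT-resistant cells). HADHA and HADHB, the subunits of the mitochondrial trifunctional protein, which sit side by side on the short arm of chromosome 2, fell together (log2FC -0.94, SE 0.064, adjusted p = 1.08e-08) and (log2FC -0.7, SE 0.070, adjusted p = 6.09e-07). Of 41 lysosomal genes 15 rose and 5 fell. CTSK, the collagen-degrading cathepsin, rose from 8.05 ± 0.262 to 19.1 ± 1.7 CPM (log2FC 1.25, SE 0.15, adjusted p = 6.01e-06) with log2FC of -2.77 in VC-resistant and -2.37 in DT-resistant cells (adjusted p = 3.5e-10 and 7.18e-10), and NPC1, the cholesterol exporter, fell from 216 ± 55.9 to 83.8 ± 1.12 CPM (log2FC -1.37, SE 0.13, adjusted p = 1.41e-06).

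Of 19 BCL2 family genes, which protect from cell death or promote it, 8 fell and 4 rose (median log2FC -0.17). BCL2A1, a protective member and a target of MITF, stood at 23, 19.1 and 12.6 CPM in the sensitive libraries and at 0.0208, 0.0204 and 0 CPM in the EB-resistant libraries (ratio 1321 with a counting interval of 365 to 10912). MCL1 and BCL2L1, protective members, fell from 554 ± 70.1 to 243 ± 16.4 CPM (log2FC -1.19, SE 0.1, adjusted p = 6.19e-08) and from 324 ± 12.5 to 131 ± 6.41 CPM (log2FC -1.31, SE 0.074, adjusted p = 1.47e-09), respectively, and BCL2 fell from 18.1 ± 1.55 to 5 ± 0.692 CPM (log2FC -1.85, SE 0.14, adjusted p = 2.76e-08). BMF, which promotes death, was at 1.96, 1.47 and 1.98 CPM in the sensitive libraries and 16.3, 24 and 14.4 CPM in the EB-resistant libraries (log2FC 3.34, SE 0.29, adjusted p = 3.35e-07), BID, which links death receptors to mitochondria, rose from 28.5 ± 4.63 to 58.1 ± 4.47 CPM (log2FC 1.03, SE 0.1, adjusted p = 6.81e-07), and BCL2L11, which encodes BIM, was not called (log2FC -0.17, SE 0.17, adjusted p = 0.429). Among 31 death receptors, ligands and caspases 8 rose and 9 fell. CASP1 rose from 7 ± 1.12 to 30.2 ± 2.35 CPM (log2FC 2.11, SE 0.13, adjusted p = 2.59e-09), CASP8 rose from 47.3 ± 3.18 to 74.7 ± 2.71 CPM (log2FC 0.66, SE 0.11, adjusted p = 0.000112), and TNFRSF10A, a receptor for TRAIL, fell from 28.3 ± 0.554 to 13.7 ± 1.52 CPM (log2FC -1.05, SE 0.091, adjusted p = 1.42e-07).

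The promoter of BCL2A1 is printed beside that of GPNMB because it also holds an M-box, 26 bases before the start, and it has an interferon-stimulated response element core, described for PDGFRB, 133 bases before it (chr15:79971197-79971446, GRCh38.p14, minus strand, matches in capitals). GPNMB and PDGFRB rose and BCL2A1 fell.

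BCL2A1: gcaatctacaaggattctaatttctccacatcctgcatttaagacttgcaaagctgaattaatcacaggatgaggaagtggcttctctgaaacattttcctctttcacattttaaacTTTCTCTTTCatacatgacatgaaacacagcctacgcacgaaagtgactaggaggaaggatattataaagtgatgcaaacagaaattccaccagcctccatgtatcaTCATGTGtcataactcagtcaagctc

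BCL2A1 was far lower here than in the other resistant lines, in which its log2FC was -0.99 in VC-resistant and -1.89 in DT-resistant cells (adjusted p = 1.47e-08 and 6.98e-08).

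Genes that copy and repair DNA were lower by small amounts. Of 46 DNA replication genes tested, 1 rose and 25 fell, 2 of them by at least 2-fold (median log2FC -0.43). Leaving out 1 library at a time gave 17 to 29 fallen genes. The risen gene was RFC4, a clamp loader subunit, whose call was lost without EB-resistant replicate 2 or 6 or without sensitive replicate 2, 5 or 6. RRM2, the inducible subunit of the enzyme that makes deoxynucleotides, was at 267, 373 and 423 CPM in the sensitive libraries and 121, 112 and 138 CPM in the EB-resistant libraries (log2FC -1.52, SE 0.24, adjusted p = 0.000373), MCM10, which starts replication forks, fell from 74.3 ± 22.2 to 36.6 ± 7.31 CPM (log2FC -1.02, SE 0.28, adjusted p = 0.00989), and PRIM1, a primase, fell from 47.6 ± 4.43 to 24.4 ± 1.38 CPM (log2FC -0.96, SE 0.16, adjusted p = 0.000207). These 3 genes were lower in the other resistant lines as well (log2FC -1.69 in VC-resistant and -1.92 in DT-resistant cells for RRM2). RRM2 lies at 9.6 to 17.7 Mb of chromosome 2, in a window where 22 of 25 neighbouring genes were lower (median log2FC -1.31). Homologous recombination and Fanconi genes had 6 of 35 higher and 22 lower (median log2FC -0.41), and 17 to 24 lower on leaving out a library. BLM, a helicase, and BRCA2 fell from 33.7 ± 3.32 to 16.9 ± 0.82 CPM (log2FC -0.99, SE 0.14, adjusted p = 1.82e-05) and from 51.1 ± 7.17 to 28 ± 2.32 CPM (log2FC -0.87, SE 0.2, adjusted p = 0.00266), respectively, and ATR, the replication stress kinase, rose from 89 ± 2.2 to 132 ± 5.4 CPM (log2FC 0.57, SE 0.1, adjusted p = 0.000171). Kinesins, motors that include those of the mitotic spindle, had 5 of 32 higher and 20 lower, with KIF23, a cytokinesis motor, down (log2FC -0.88, SE 0.11, adjusted p = 6.29e-06).

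Histone genes moved the other way. Of 31 linker and core histone genes tested, 21 rose and 0 fell, 18 of the risen ones by at least 2-fold (median log2FC 1.1). None was lower with edgeR at an unadjusted p under 0.05, and DESeq2 and limma called 0 lower. H2AC6 stood at 24.8, 17.6 and 18.9 CPM in the sensitive libraries and 64, 79.5 and 64.3 CPM in the EB-resistant libraries (log2FC 1.76, SE 0.29, adjusted p = 0.000405), and H2BC21 rose from 8.23 ± 2.55 to 33.3 ± 4.57 CPM (log2FC 2.01, SE 0.27, adjusted p = 4.4e-05). H3C10 rose from 1.56 ± 0.144 to 7.52 ± 1.36 CPM (log2FC 2.27, SE 0.18, adjusted p = 6.03e-08). Log2FC of H2AC6 were -0.3 in VC-resistant and 0.95 in DT-resistant cells, and EB-resistant was above both (adjusted p = 0.000146 and 0.03). Most replication-dependent histone mRNAs carry no poly(A) tail, so these polyadenylated libraries hold only part of them, and near copies of these genes can share reads. Of 52 Polycomb, DNA methylation and SWI/SNF genes 17 rose and 24 fell. DNMT1, the maintenance methyltransferase, fell from 263 ± 24.1 to 139.5 ± 13.9 CPM (log2FC -0.91, SE 0.1, adjusted p = 2.21e-06), and KDM5B, a demethylase of histone H3 that marks slow-cycling melanoma cells, rose from 72.4 ± 4.35 to 145 ± 14.9 CPM (log2FC 1.01, SE 0.19, adjusted p = 0.000683).

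Across large gene families, 45.1% of 446 ZNF-named zinc finger genes were called, 130 higher and 71 lower, against 56.1% of all genes. TRIM genes had 22 of 43 higher and 10 lower, among them TRIM22, an antiviral ligase, higher (log2FC 2.32, SE 0.33, adjusted p = 5.99e-05). Of 5 guanylate-binding protein genes, interferon-induced GTPases, 4 rose and 1 fell. GBP1 was at 23.7, 24.1 and 27.5 CPM in the sensitive libraries and 59, 34.5 and 37.3 CPM in the EB-resistant libraries (log2FC 0.79, SE 0.22, adjusted p = 0.0101). Its promoter, shown as a holder of the interferon motif that rose where BCL2A1, another holder, fell, has that motif 127 bases and a CArG box, the site of serum response factor, 166 bases before the start (chr1:89065209-89065458, GRCh38.p14, minus strand, both in capitals).

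GBP1: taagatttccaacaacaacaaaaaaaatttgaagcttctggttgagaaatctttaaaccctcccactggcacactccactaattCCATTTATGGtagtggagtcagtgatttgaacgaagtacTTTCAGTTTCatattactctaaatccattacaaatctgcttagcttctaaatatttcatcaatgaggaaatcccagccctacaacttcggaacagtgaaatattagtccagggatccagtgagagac

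Forkhead factors had 7 of 28 higher and 13 lower, with FOXD1, a mesenchymal regulator, down from 294 ± 55.6 to 59.8 ± 4.01 CPM (log2FC -2.3, SE 0.13, adjusted p = 2.9e-09). Tubulins had 7 of 19 higher and 9 lower: TUBB4A and TUBB2B, neuronal forms, rose from 0.183 ± 0.0762 to 19.8 ± 3.16 CPM (log2FC 6.74, SE 0.34, adjusted p = 8.46e-10) and from 10.2 ± 1.54 to 46.6 ± 1.41 CPM (log2FC 2.2, SE 0.26, adjusted p = 1.7e-05), respectively, and TUBB6 fell from 428 ± 27.7 to 124 ± 4.49 CPM (log2FC -1.79, SE 0.15, adjusted p = 4.69e-07).

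Potassium channel subunits fell in 13 and rose in 8 of 30. KCNE4, a modulatory subunit, stood at 0.152, 0.0794 and 0.261 CPM in the sensitive libraries and 38.4, 64.8 and 54.6 CPM in the EB-resistant libraries (log2FC 8.32, SE 0.32, adjusted p = 2.13e-10), and KCNG1 fell from 94.3 ± 29.8 to 17.9 ± 4.11 CPM (log2FC -2.39, SE 0.24, adjusted p = 8.45e-06). Solute carriers were close to the background, 81 higher and 66 lower of 224. SLC6A15, a transporter of neutral amino acids, was at 61.4, 43.3 and 39.8 CPM in the sensitive libraries and 1.04, 0.509 and 0.189 CPM in the EB-resistant libraries (log2FC -6.37, SE 0.42, adjusted p = 7.31e-07), and its log2FC was 0.46 in VC-resistant and 1.2 in DT-resistant cells (adjusted p = 5.35e-07 and 3.21e-07). SLC12A8 rose from 5.47 ± 0.249 to 69.2 ± 11 CPM (log2FC 3.66, SE 0.14, adjusted p = 2.26e-11). Small heat shock protein gene HSPB1 rose from 40.1 ± 0.686 to 179 ± 20.1 CPM (log2FC 2.16, SE 0.14, adjusted p = 2.64e-08). KRT81, a hair keratin, fell from 399.6 ± 19.2 to 45.2 ± 21.1 CPM (log2FC -3.14, SE 0.33, adjusted p = 2.8e-05), with log2FC of 1.37 in VC-resistant and 1.92 in DT-resistant cells (adjusted p = 3.68e-06 and 2.22e-06). ADGRG1, an adhesion receptor that binds transglutaminase 2, fell from 49.8 ± 9.19 to 1.62 ± 0.164 CPM (log2FC -4.94, SE 0.2, adjusted p = 5.66e-11). Of 82 cytoplasmic ribosomal protein genes 21 rose and 20 fell, with 50% called against 56.1% of all genes.

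**Figure D4:**
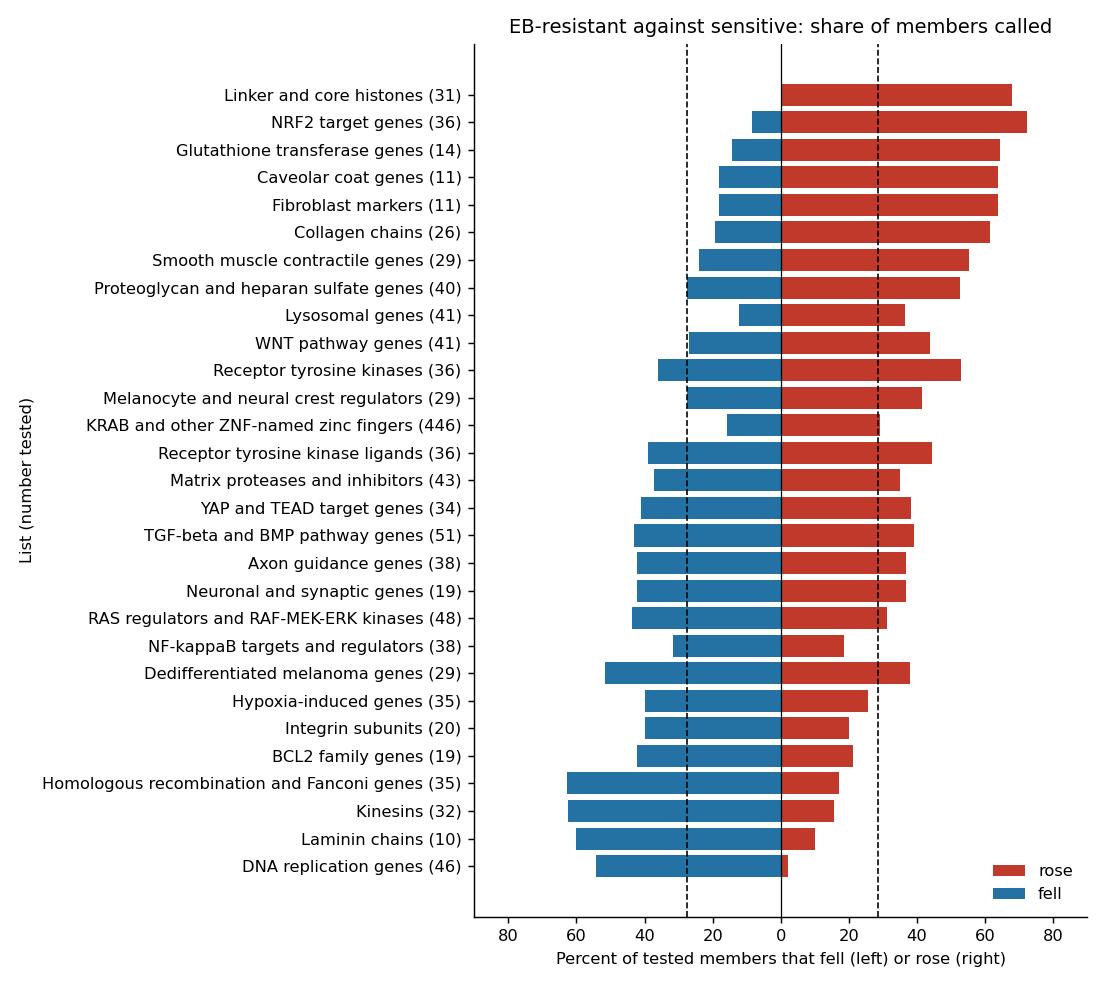
Share of tested members that rose (right) and fell (left) in 29 of the gene lists and families, in percent, with the number tested after each name. Dashed lines mark the shares over all genes tested, 28.5% higher and 27.6% lower. NRF2 targets, histones and collagen chains exceed the line on the right, and DNA replication, recombination genes, kinesins and laminins on the left.

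On several chromosomes most of the called genes moved in 1 direction. On chromosome 22, 242 of 386 tested genes rose (62.7%) and 15 fell (3.9%), with a median log2FC of 0.55. On chromosome 18, 29 of 255 tested genes rose (11.4%) and 146 fell (57.3%), with a median of -0.55. Chromosome 11 leaned up (50.4% higher and 11.8% lower, median 0.34), and chromosomes 10, 12 and 15 leaned down, with medians of -0.43, -0.43 and -0.33. Over all genes tested the shares are 28.5% and 27.6%. The libraries of the group were alike: the median log2 ratio of a library to the sensitive mean (0.5 CPM added) was 0.43 to 0.46 for chromosome 22 in the EB-resistant libraries, against -0.014 to 0.004 in the sensitive libraries. On chromosome 18 it was -0.47 to -0.43, against -0.027 to 0.029. Among genes with a mean of at least 10 CPM the medians were 0.5 for chromosome 22 and -0.62 for chromosome 18.

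These chromosome medians were smaller in the other resistant lines, which share the sensitive libraries. For chromosome 22 the median log2FC was 0.093 in VC-resistant and 0.12 in DT-resistant cells, for chromosome 18 -0.15 and -0.16, and for chromosome 12 -0.15 and -0.17. On chromosome 15 the EB-resistant libraries lay at -0.3 to -0.19 and the VC-resistant libraries at 0.009 to 0.075, on opposite sides of 0. Chromosome 10 was lower in all resistant lines (medians of -0.29 and -0.25 in VC-resistant and DT-resistant). No test was made of these medians, since genes are not replicates and 3 libraries against 3 allow no small exact p. DNA copy number was not analysed here, and its part in these shifts was not tested.

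Within chromosomes, the medians of 10 Mb bins changed level at several places. The following stretches were chosen after these medians were seen and are not all places of this kind. From 0 to 60 Mb of chromosome 2, 255 tested genes had a median log2FC of -0.96 (17 higher and 197 lower), and from 100 to 250 Mb, 664 tested genes had a median log2FC of 0.074 (217 higher and 150 lower). From 60 to 90 Mb, 182 tested genes had a median log2FC of -0.38 (17 higher and 98 lower), and the medians there were above 0 in the other lines (0.16 and 0.13). The stretch from 0 to 60 Mb was lower in all resistant lines, with medians of -0.62 in VC-resistant and -0.64 in DT-resistant cells. On chromosome 3, 338 tested genes had a median log2FC of -0.45 (31 higher and 188 lower) from 20 to 80 Mb, and 407 tested genes had a median log2FC of 0.51 (220 higher and 52 lower) from 120 to 200 Mb. From 120 to 200 Mb of chromosome 3 the medians were 0.11 and 0.17 in the other lines. On chromosome 5, 159 tested genes had a median log2FC of -0.48 (19 higher and 82 lower) from 0 to 50 Mb and 675 tested genes had a median log2FC of 0.25 (287 higher and 106 lower) from 50 to 190 Mb, and the other lines had the same signs. On chromosome 8, 362 tested genes had a median log2FC of 0.38 (185 higher and 34 lower) from 60 to 150 Mb, against a median of -0.050 from 0 to 50 Mb. On chromosome 4, 186 tested genes had a median log2FC of -0.38 (31 higher and 99 lower) from 0 to 50 Mb, and the median was 0 from 50 to 190 Mb. On chromosome 13, 89 tested genes had a median log2FC of -0.22 (15 higher and 30 lower) from 20 to 40 Mb and 230 tested genes had a median log2FC of 0.32 (96 higher and 33 lower) from 40 to 120 Mb. On chromosome 16, 415 tested genes had a median log2FC of 0.26 (159 higher and 35 lower) from 0 to 40 Mb, against a median of -0.014 from 40 to 90 Mb. From 100 to 130 Mb of the X chromosome, 126 tested genes had a median log2FC of 0.46 (64 higher and 16 lower), with medians of 0.51 and 0.41 in the other lines.

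**Figure D5:**
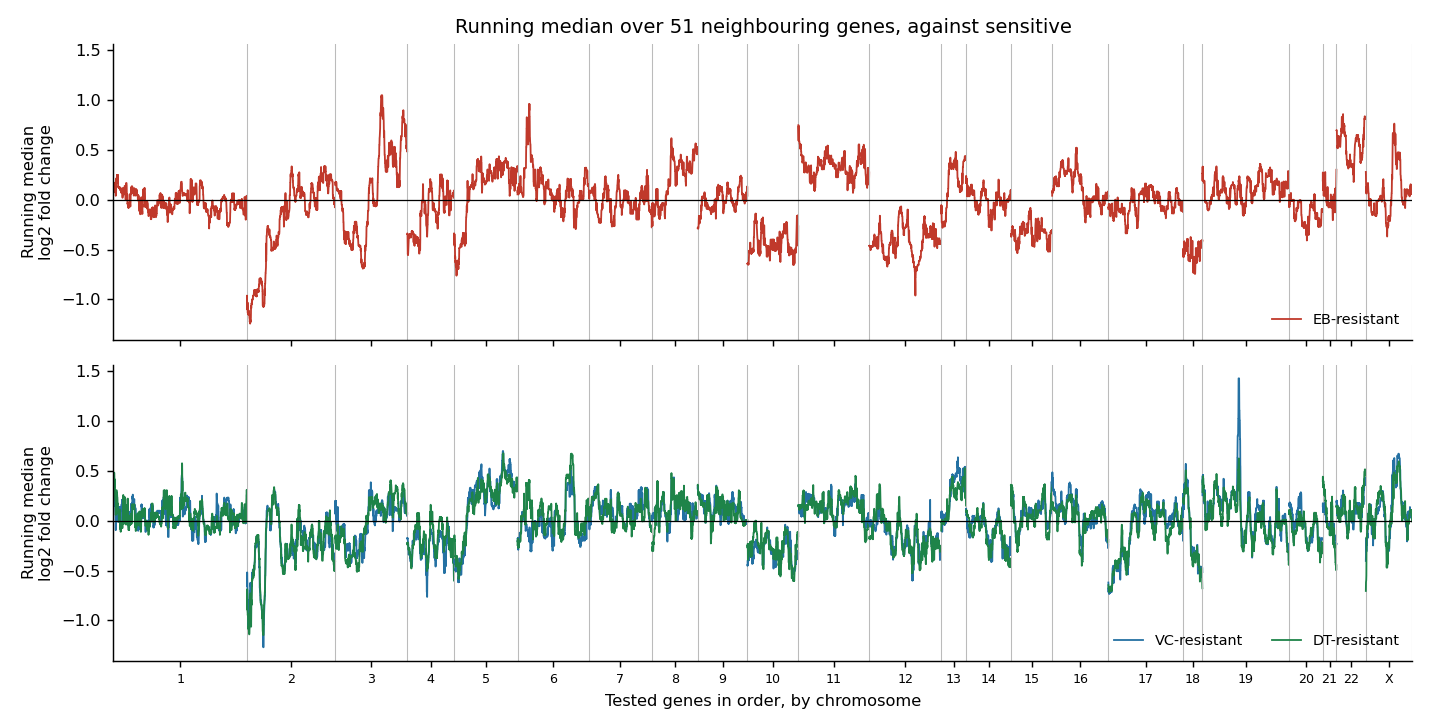
Running median of log2FC over 51 consecutive tested genes in order along chromosomes 1 to 22 and X, for the EB-resistant line (top) and for the VC-resistant and DT-resistant lines (below), all against sensitive. Vertical lines separate chromosomes. The EB-resistant trace lies above 0 over chromosomes 11 and 22 and the later part of 3 and 8, and below 0 over the first part of 2 and over 10, 12, 15 and 18.

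The highest window of 25 neighbouring genes lay in the histone cluster of chromosome 6 (25.3 to 26.5 Mb), where 17 genes rose and 0 fell (median log2FC 1.25; edgeR at an unadjusted p under 0.05, DESeq2 and limma also gave 0 lower). It reached the butyrophilin gene BTN3A3 (log2FC 1.57, SE 0.14, adjusted p = 1.62e-07). The same genes had medians of -0.1 in VC-resistant and 0.66 in DT-resistant cells. The next, at 21.9 to 24.0 Mb of chromosome 22, held 20 risen genes (median 1.17), among them PRAME, a cancer-testis antigen, which rose from 10.2 ± 0.234 to 38.8 ± 1.85 CPM (log2FC 1.93, SE 0.1, adjusted p = 8.89e-10). At 128.5 to 129.9 Mb of chromosome 3, 21 of 25 genes rose (median 1.13). RAB7A, a GTPase of late endosomes, stood there at 305, 304 and 305 CPM in the sensitive libraries and 695, 748 and 775 CPM in the EB-resistant libraries (log2FC 1.28, SE 0.062, adjusted p = 2.98e-10), with log2FC of 0.086 in VC-resistant and 0.18 in DT-resistant cells (adjusted p = 1.28e-09 and 2.72e-09), and COPG1, a coat protein of Golgi vesicles, rose from 207 ± 7.1 to 533 ± 47.9 CPM (log2FC 1.37, SE 0.092, adjusted p = 9.41e-09). PLXND1, named above, lies in the same window.

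The lowest window lay at 9.6 to 17.7 Mb of chromosome 2, with 22 of 25 genes lower (median log2FC -1.31). ODC1, which starts polyamine synthesis, was at 591, 634 and 580.4 CPM in the sensitive libraries and 123, 125 and 139.8 CPM in the EB-resistant libraries (log2FC -2.22, SE 0.24, adjusted p = 2.02e-05), and DDX1, an RNA helicase, fell from 241 ± 22.5 to 106 ± 2.61 CPM (log2FC -1.18, SE 0.076, adjusted p = 5.41e-09). The window was as low in the other lines (medians -1.28 and -1.39). The next lay at 71.8 to 79.7 Mb of chromosome 12, with 23 lower (median -1.18), and medians of -0.6 and -0.45 in the other lines. NAP1L1, a histone chaperone, fell there from 974 ± 32.9 to 609 ± 20.3 CPM (log2FC -0.68, SE 0.065, adjusted p = 4.22e-07), as did TRHDE, described first. The third, at 43.2 to 47.7 Mb of chromosome 2, had 23 of 25 genes lower (median -1.16), with medians of -1.34 and -1.31 in the other lines. LRPPRC, which stabilises mitochondrial mRNA, fell there from 497 ± 9.9 to 238 ± 6.4 CPM (log2FC -1.06, SE 0.061, adjusted p = 1.63e-09). The 1 gene that rose was EPAS1, which encodes HIF-2 alpha, from 31 ± 3.31 to 50.5 ± 3.46 CPM (log2FC 0.7, SE 0.11, adjusted p = 6.16e-05).

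Besides these broad shifts, 60 runs of at least 4 adjacent tested genes were all changed 2-fold or more in 1 direction, and several are clusters of related genes. In the HOXC cluster of chromosome 12, a run of 6 genes from HOXC13-AS to HOXC10 rose within 55 kb. HOXC13 was at 3.55, 2.66 and 3.7 CPM in the sensitive libraries and 10.3, 12.8 and 12.1 CPM in the EB-resistant libraries (log2FC 1.83, SE 0.23, adjusted p = 9.18e-06) and HOXC10 rose from 9.78 ± 0.884 to 24.3 ± 1.53 CPM (log2FC 1.31, SE 0.17, adjusted p = 1.38e-05). In the pregnancy-specific glycoprotein cluster of chromosome 19, PSG4 stood at 21.9, 28 and 25.3 CPM in the sensitive libraries and 162, 209.8 and 214 CPM in the EB-resistant libraries (log2FC 2.96, SE 0.13, adjusted p = 1.7e-10) and PSG5 rose from 1.21 ± 0.197 to 34.7 ± 12.5 CPM (log2FC 4.84, SE 0.31, adjusted p = 4.51e-08), with PSG2 and PSG11 beside them. The complement protease genes C1S and C1R, adjacent on chromosome 12, rose from 0.221 ± 0.126 to 12.6 ± 1.18 CPM (log2FC 5.8, SE 0.66, adjusted p = 2.47e-05) and from 0.693 ± 0.177 to 9.04 ± 0.29 CPM (log2FC 3.71, SE 0.43, adjusted p = 9.82e-06), respectively, against the downward shift of that chromosome, with log2FC of -1.01 in VC-resistant and 2.29 in DT-resistant cells for C1R (adjusted p = 2.94e-06 and 0.00547). MYEOV and CCND1 stand at the ends of a run of 4 lower genes on chromosome 11, against the upward shift there. PSG, HOX antisense and histone genes have near copies or overlapping partners, and the strand setting of the counting is not given in the sources used here, so single values in these clusters are uncertain.

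Promoter letters were compared for 11 motifs on both strands of the 300 bases from 250 before to 50 after each RefSeq start, in the 10551 protein-coding genes tested that have a promoter in the table. Of these, 30.1% rose and 31.9% fell. The interferon-stimulated response element core GAAA followed by any 2 bases and GAAA, in 3.57% of all promoters, was held by 306 tested genes, of which 42.2% rose and 20.9% fell (median log2FC 0.17). Holders of the E2F site TTTGGCGC (0.65% of all promoters) rose in 21.2% and fell in 38.1% of 113 genes. With only the 250 bases before the start, these became 24.4% and 34.4% of 90, while the interferon motif kept 42% and 21.2%. Holders of the AP-1 site TGANTCA (7.71% of all promoters) rose and fell near the background (33% and 31.9%), and those changed by at least 2-fold were 14.9% higher and 12.4% lower against 10.8% and 8.2%. For the ETS site CGGAAGT (6.83%) these shares were 3.5% and 2.5%.

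The M-box was in 2.92% of all promoters, and 35% of 177 holders rose and 28.8% fell. Holders of the TEAD site (14% of all promoters) rose in 32.3% and fell in 30.6%. The antioxidant response element core TGACNNNGC, to which NRF2 binds, was in 13.3% of all promoters, and its holders rose in 30.1% and fell in 31.5%, close to the shares of any promoter. Holders of the CArG box (1.29% of all promoters) rose in 30.4% and fell in 31.2%. Raised shares of 2-fold changes were not particular to the AP-1 site. At 2-fold or more, 17.5% of M-box holders were higher and 10.2% lower, and 15.2% and 10.7% of CArG box holders. These shares were 18.6% and 6.5% for the interferon motif, 14.1% and 7.7% for the TEAD site and 9.4% and 7.7% for the antioxidant core. The antioxidant core and the AP-1 site can overlap. These are shares of genes and no test was made of them.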

How the data were processed

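Poly(A)-selected RNA of 12 libraries from 3 independent experiments was sequenced with a strand-specific kit, per the labels' protocols. Per the submitters' processing notes, reads were aligned to hg38 with STAR 2.7.10b and counted with featureCounts 2.0.1. The deposited values used here are raw counts per gene. The normalized table that the authors also deposited was not used. Counting strand, annotation release and doses: not given in the sources used here.

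Genes were kept by filterByExpr over the 4 groups (17114 genes), scaled by TMM and tested with edgeR 4.0.16 (R 4.3.3; robust quasi-likelihood F-test on all 12 libraries with 8 residual degrees of freedom), with Benjamini-Hochberg adjustment over all genes and a threshold of 0.05. DESeq2 1.42.0 and limma 3.58.1 were alternatives. Folds against 0 counts are bounds set by a floor of 3 counts in each library, and low totals have 95% counting intervals, both for counting error only.

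The text takes its genes from the 12 highest and 12 lowest called log2FC (5 CPM or more in all libraries of the higher group), from up to 4 called members per direction of 44 lists and 65 symbol families at the same level, from 100 fixed genes, and from the runs and the 3 highest and 3 lowest windows of neighbouring genes. Members and lists were chosen with earlier results of these data known. RefSeq promoters (GRCh38.p14) matched 10551 of 13099 protein-coding genes tested. In counts simulated for this comparison (16645 genes), the test recovered 39 of 70 genes changed 1.5-fold, 56 of 65 changed 2-fold and 63 of 65 changed 4-fold, and called 11 unchanged genes. Only these few genes, all well counted, were changed in the simulation, whereas 56.1% of genes were called in the data. Its recovery and number of false calls therefore need not hold for the data. Counts of every pair of replicates differed beyond sampling noise. Genes with near copies (HLA, keratin, PSG, zinc finger, MAGE and histone genes) and overlapping or antisense genes are uncertain. DNA copy number was not analysed here. Figures were drawn with matplotlib 3.10.9.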

Additional observations from a re-analysis of the deposited data

Results flagged for a closer look

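The following results were set apart because the EB-resistant line and another resistant line moved in opposite directions against the shared sensitive libraries, and, for genes, because the difference between the lines was itself called by edgeR's quasi-likelihood test (adjusted over 17114 genes). Values are log2FC against sensitive and, as a difference, EB-resistant minus the other line on the log2 scale. No cause was tested.

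Matrix, adhesion and cytoskeletal genes made up 11 of these genes. ADAMTS15 rose here (3.66) and fell in VC-resistant cells (-0.8), a difference of 4.46 (adjusted p = 2.29e-09). CAVIN2 rose here (4.48) and fell in DT-resistant cells (-1.9), a difference of 6.38 (adjusted p = 1.46e-05). COL18A1 rose here (2.99) and fell in VC-resistant cells (-1.53), a difference of 4.52 (adjusted p = 4.49e-06). COL4A6 rose here (log2FC 2.66) and fell in both other lines (-1.88 in VC-resistant and -1.72 in DT-resistant cells), with differences of 4.53 and 4.37 (adjusted p = 7.51e-07 and 9.71e-07). ITGB8 rose here (log2FC 1.74) and fell in both other lines (-1.21 in VC-resistant and -1.12 in DT-resistant cells), with differences of 2.96 and 2.86 (adjusted p = 1.73e-06 and 2.36e-06). KRT81 fell here (log2FC -3.14) and rose in both other lines (1.37 in VC-resistant and 1.92 in DT-resistant cells), with differences of -4.51 and -5.06 (adjusted p = 3.68e-06 and 2.22e-06). LOX rose here (log2FC 1.4) and fell in both other lines (-3.91 in VC-resistant and -5.77 in DT-resistant cells), with differences of 5.31 and 7.18 (adjusted p = 7.51e-07 and 3.1e-07). PKP3 rose here (1.72) and fell in VC-resistant cells (-0.77), a difference of 2.49 (adjusted p = 2.1e-09). SERPINB2 rose here (4.37) and fell in VC-resistant cells (-2.81), a difference of 7.19 (adjusted p = 1.94e-09). TGFBI fell here (-2.17) and rose in DT-resistant cells (2.16), a difference of -4.33 (adjusted p = 7.49e-07). TUBB2B rose here (2.2) and fell in VC-resistant cells (-0.71), a difference of 2.91 (adjusted p = 2.5e-06).

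Genes of receptors, ligands and signalling made up 11 of these genes. ANKRD1 fell here (-1.58) and rose in VC-resistant cells (0.38), a difference of -1.97 (adjusted p = 1.49e-07). BMF rose here (3.34) and fell in VC-resistant cells (-1.23), a difference of 4.57 (adjusted p = 6.17e-08). BTG2 rose here (2.53) and fell in VC-resistant cells (-1.62), a difference of 4.14 (adjusted p = 1.41e-05). DKK1 rose here (log2FC 0.76) and fell in both other lines (-0.61 in VC-resistant and -0.78 in DT-resistant cells), with differences of 1.37 and 1.54 (adjusted p = 0.000225 and 0.000111). IGFBP2 rose here (log2FC 2.42) and fell in both other lines (-2.16 in VC-resistant and -4.45 in DT-resistant cells), with differences of 4.58 and 6.87 (adjusted p = 2.92e-06 and 6.38e-07). INHBA fell here (-1.43) and rose in DT-resistant cells (1.92), a difference of -3.36 (adjusted p = 1.27e-08). MUSK rose here (log2FC 2.7) and fell in both other lines (-1.07 in VC-resistant and -1.26 in DT-resistant cells), with differences of 3.77 and 3.96 (adjusted p = 1.41e-09 and 1.01e-09). ROR1 rose here (1.97) and fell in VC-resistant cells (-1.48), a difference of 3.45 (adjusted p = 1.17e-05). SGK1 fell here (log2FC -1.93) and rose in both other lines (0.88 in VC-resistant and 0.88 in DT-resistant cells), with differences of -2.81 and -2.81 (adjusted p = 7.76e-05 and 8.27e-05). WNT5A fell here (-0.49) and rose in DT-resistant cells (1.52), a difference of -2.01 (adjusted p = 3.16e-07). WNT5B rose here (log2FC 0.74) and fell in both other lines (-0.49 in VC-resistant and -1.26 in DT-resistant cells), with differences of 1.23 and 2.0 (adjusted p = 1.38e-05 and 2.63e-07).

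Genes of metabolism, transport and chromatin made up 14 of these genes. ABCC2 rose here (log2FC 3.37) and fell in both other lines (-2.13 in VC-resistant and -2.6 in DT-resistant cells), with differences of 5.51 and 5.97 (adjusted p = 1.42e-11 and 7.71e-12). CTSK rose here (log2FC 1.25) and fell in both other lines (-2.77 in VC-resistant and -2.37 in DT-resistant cells), with differences of 4.02 and 3.61 (adjusted p = 3.5e-10 and 7.18e-10). ENO2 fell here (log2FC -1.22) and rose in both other lines (0.83 in VC-resistant and 0.45 in DT-resistant cells), with differences of -2.05 and -1.67 (adjusted p = 1.84e-10 and 1.21e-09). FADS2 rose here (log2FC 2.13) and fell in both other lines (-1.75 in VC-resistant and -2.03 in DT-resistant cells), with differences of 3.88 and 4.16 (adjusted p = 5.61e-05 and 4.15e-05). H3C10 rose here (2.27) and fell in VC-resistant cells (-0.59), a difference of 2.87 (adjusted p = 1.29e-08). MGLL fell here (-1.5) and rose in VC-resistant cells (0.33), a difference of -1.83 (adjusted p = 2.69e-09). MT1F rose here (2.38) and fell in VC-resistant cells (-0.95), a difference of 3.33 (adjusted p = 7.61e-09). NAP1L1 fell here (-0.68) and rose in VC-resistant cells (0.21), a difference of -0.89 (adjusted p = 3.46e-08). NDRG1 rose here (1.68) and fell in VC-resistant cells (-0.69), a difference of 2.37 (adjusted p = 6.54e-08). NPC1 fell here (-1.37) and rose in VC-resistant cells (0.74), a difference of -2.11 (adjusted p = 3.68e-08). RXRA rose here (log2FC 2.46) and fell in both other lines (-0.45 in VC-resistant and -0.47 in DT-resistant cells), with differences of 2.91 and 2.94 (adjusted p = 9.12e-11 and 8.07e-11). SLC2A3 fell here (-2.01) and rose in VC-resistant cells (1.21), a difference of -3.22 (adjusted p = 1.04e-05). SLC39A6 fell here (-1.72) and rose in DT-resistant cells (1.53), a difference of -3.25 (adjusted p = 1.24e-12). SLC6A15 fell here (-6.37) and rose in DT-resistant cells (1.2), a difference of -7.57 (adjusted p = 3.21e-07).

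Chromosomes with at least 100 tested genes were set apart where every EB-resistant library had its median log2 ratio on the other side of 0 from every library of another line. On chromosome 1 the median log2FC was -0.021 here, 0.047 in VC-resistant and 0.048 in DT-resistant cells, differences of -0.07 and -0.07. On chromosome 3 the median log2FC was 0.057 here, -0.025 in VC-resistant and -0.011 in DT-resistant cells, differences of 0.08 and 0.07. On chromosome 6 it was 0.11 here and -0.026 in VC-resistant cells, a difference of 0.14. On chromosome 7 the median log2FC was -0.022 here, 0.11 in VC-resistant and 0.061 in DT-resistant cells, differences of -0.13 and -0.08. On chromosome 15 the median log2FC was -0.33 here, 0.066 in VC-resistant and 0.055 in DT-resistant cells, differences of -0.40 and -0.39. These chromosome differences were not tested, and on chromosomes 1, 3 and 7 the medians of the EB-resistant line lay close to 0.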

How the results depend on the processing

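The counts of changed genes stayed within 1.5 times of the reported counts in all alternatives run: DESeq2, limma with voom weights, DESeq2 and upper quartile scaling, no filter, at least 1 CPM in 3 libraries, a fit to the 6 libraries alone and the replicate block. Leaving out each of the 6 libraries in turn gave 4334 to 4702 genes higher, 4182 to 4567 lower, 2060 to 2223 higher and 1438 to 1513 lower by at least 2-fold, and 1589 to 1705 called members of the lists and families. Among the counts of the lists followed through the alternatives, 2 moved by more than 1.5 times. NRF2 targets that fell numbered 3, 1 with upper quartile scaling and 1 to 3 on leaving out a library. DNA replication genes that rose numbered 1, 2 in the fit to 6 libraries and 0 to 1 on leaving out a library. With the replicate number as a block, 5117 genes were higher and 5014 lower, and 2 DNA replication genes rose. Deviations from the group means of same-numbered EB-resistant and sensitive libraries correlated at 0.0493, 0.00144 and 0.0716. For differently numbered libraries of these groups the correlations ran from -0.0763 to 0.022. With sensitive libraries of the same number, VC-resistant libraries correlated at 0.0352 to 0.0885 and DT-resistant libraries at 0.0445 to 0.0708. With those of another number they ran from -0.0652 to 0.0359 and from -0.0718 to 0.039. Such weak correlations do not settle whether libraries with the same number share an experiment, and the main fit used no block. Of 245 named genes called, 240 were called in every alternative in which they were tested, and none changed sign. Windows of 15 and 40 genes had highest medians of 1.813 and 1.111. Subtracting each chromosome's median, an alternative chosen after seeing the data, moved 5 of the 16 list medians printed by more than 1.5 times or across 0: TGF-beta and BMP from -0.14 to 0.20, caveolar coat from 0.56 to 0.21, pigment from 0.091 to -0.008, hypoxia from -0.14 to -0.25 and YAP targets from -0.059 to -0.16. Genes with few counts carry wide intervals, and these cover counting error only.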

Other observations

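Chemokines were higher in 5 of 13 tested and not called in 8, against 28.5% higher over all genes tested. Summed over the family they took 597 to 891 CPM in sensitive and 130 to 469 CPM in EB-resistant libraries. CXCL8, given above and not called, made up most of the sum in the sensitive libraries. CCL2, a monocyte attractant, rose from 0.035 ± 0.0116 to 11.4 ± 3.28 CPM (log2FC 8.23, SE 0.39, adjusted p = 2.34e-10), with log2FC of 0.7 in VC-resistant and 2.61 in DT-resistant cells (adjusted p = 7.05e-10 and 1.82e-09). CCL5, a T cell attractant, rose from 2.11 ± 0.462 to 29.9 ± 5.18 CPM (log2FC 3.82, SE 0.33, adjusted p = 2.99e-06), with log2FC of 3.53 in VC-resistant and 4.74 in DT-resistant cells. HLA genes were higher in 5 and lower in 3 of 12, and HLA-C, a class I gene, rose from 100.3 ± 9.47 to 183 ± 7.87 CPM (log2FC 0.87, SE 0.2, adjusted p = 0.00275). Near copies make single HLA values uncertain. The potassium channel regulator ABCC9 fell from 13.7 ± 4.07 to 3.32 ± 1.02 CPM (log2FC -2.05, SE 0.28, adjusted p = 4.27e-05). Among all 30 ABC transporters 12 rose and 9 fell.

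Of 9 HOXA cluster genes tested, 5 fell and 0 rose (0 also by edgeR at an unadjusted p under 0.05, with DESeq2 and with limma), and HOXA10 fell from 25.6 ± 2.07 to 20.6 ± 1.51 CPM (log2FC -0.32, SE 0.092, adjusted p = 0.0084), a call lost without EB-resistant replicate 2 (log2FC -0.25, adjusted p = 0.0543). Among T-box factors TBX15 rose from 1.16 ± 0.367 to 10.2 ± 0.578 CPM (log2FC 3.13, SE 0.17, adjusted p = 1.19e-09) and TBX2 (log2FC -1.08, SE 0.22, adjusted p = 0.000633) and TBX3 (log2FC -1.02, SE 0.18, adjusted p = 0.000278) fell. Proteasome subunits were lower in 13 and higher in 5 of 46, with 39.1% called against 56.1% of all genes tested. The lower share was near the 27.6% over all genes tested. PSMD2, a subunit of the regulatory particle, fell from 1105 ± 12 to 542 ± 19.2 CPM (log2FC -1.03, SE 0.11, adjusted p = 2.49e-06), and PSMB9, a subunit of the immunoproteasome, rose from 18.8 ± 0.876 to 31.8 ± 0.43 CPM (log2FC 0.76, SE 0.1, adjusted p = 1.68e-05).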
